A study of Mus musculus with 12 samples.

Results

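Mice given conduritol B epoxide (CBE) were compared with mice given phosphate-buffered saline (PBS), in whole brain of C57BL/6 mice, across all genes of a bulk 3' tag RNA-seq data set. The comparison took every library labelled PBS or CBE, 8 of the 12 in the series, with 4 in each group. The PBS libraries (replicates 2, 3, 4 and 5) came from postnatal day 40. The CBE libraries came from day 34 (replicates 2 and 3) and day 40 (replicates 4 and 6) and were treated as 1 group, so that no PBS library of day 34 stands beside the younger CBE libraries. The other 4 libraries, from mice given CBE with GZ-667161, an inhibitor of glucosylceramide synthesis, entered the fit only for the estimate of the spread. Dose, route and start of treatment and the sex of the mice are not stated in the labels. Whether a library is 1 mouse is not stated either, and a p-value then measures only how these libraries vary, in part perhaps for technical reasons.

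CBE blocks the lysosomal enzyme that breaks down glucosylceramide, a lipid that all cells make and turn over, and is used to produce, with a chemical and not a mutation, a state like neuronopathic Gaucher disease in mice. In that disease the undegraded lipid fills lysosomes, macrophages and microglia take on an activated state, and neurons are lost. Microglia are the resident phagocytes of the brain, astrocytes are the glia that supply and shield neurons, and oligodendrocytes make myelin. Defining markers of neurons (Rbfox3), astrocytes (Gfap), oligodendrocytes (Mbp) and microglia (Aif1) had counts in all 8 libraries, as whole brain should. Levels below are in CPM, the counts scaled to the same total in each library after TMM scaling. Where the values of single libraries are listed, PBS replicates 2, 3, 4 and 5 come first and CBE replicates 2, 3, 4 and 6 second. A change is the log2 fold change of CBE over PBS with its standard error (SE), and a gene is said to rise or fall where edgeR's quasi-likelihood test gave an adjusted p under 0.05 over all genes tested.

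The 8 libraries held 1758446 to 6521257 counts, with the lowest totals in the 2 day 34 CBE libraries. In a principal component analysis of these 8 libraries the first component (40.5% of the variance) separated PBS from CBE and the second (17.2%) separated the CBE libraries of the 2 days. Xist, which is expressed from the inactive X chromosome, lay at 0.265, 0.213, 7.96 and 18.3 CPM in the PBS libraries and at 0 to 0.555 CPM in the CBE libraries, so that 2 PBS libraries and no CBE library had the pattern of females. Ttr, a marker of choroid plexus, lay at 11.3 to 103 CPM in PBS and at 56.0 to 517 CPM in CBE. Mitochondrially encoded genes took 0.347% to 0.444% of the counts in PBS and 0.255% to 0.325% in CBE. The part of choroid plexus and RNA quality in the results below was not tested. Each gene was also fitted without the 2 PBS libraries of high Xist, an alternative added after the data were seen, and with the Xist level as a covariate. Of 188 genes named below that passed, 50 lost the call in the first of these fits and 21 in the second. Further, 53 lost it without the day 40 CBE libraries and 24 without the day 34 CBE libraries, and each is named where it is described.

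Of 12623 genes tested, 1387 passed (11.0%), 877 of them higher in CBE (6.95%) and 510 lower (4.04%). The rises were larger than the falls. Of the genes that rose, 568 did so by over 2-fold, 256 by over 4-fold, 95 by over 8-fold and 39 by over 16-fold, whereas 91 fell by over 2-fold, 7 by over 4-fold and 0 by over 8-fold. The median log2 fold change was 1.34 among genes that rose, -0.63 among those that fell and -0.01 over all tested. The 2 sets also differed in level. Genes that rose had a median of 10.7 CPM in PBS and 28.2 CPM in CBE. Their summed share was 5.65% to 5.79% in PBS libraries and 11.4% to 11.9% in CBE libraries. For genes that fell the medians were 92.1 CPM in PBS and 61.2 CPM in CBE, a smaller gap in CBE. The summed share of this set was 9.13% to 10.1% in PBS libraries and 6.09% to 6.92% in CBE libraries. Both sets were chosen by direction of change, which fixes in advance which group has the larger share and shifts the medians. Among genes under 10 CPM 8.09% rose and 1.26% fell, and among genes over 100 CPM 5.43% rose and 9.84% fell. In bulk tissue a change in the number of cells of a type cannot be told apart from a change in RNA per cell, and this holds for each result below.

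The number of genes that rose depended less on single libraries than the number that fell. With 1 library left out, 711 to 959 genes rose and 237 to 556 fell, and the number that fell moved by over 1.5 times without PBS replicate 2, 3 or 4 or CBE replicate 4 or 6. Without the day 40 CBE libraries 652 rose and 99 fell, and without the 2 PBS libraries of high Xist 515 rose and 205 fell. The fit without day 40 keeps only the 2 CBE libraries with the lowest totals, so a call lost there may reflect depth. All values of the 4 CBE libraries lay above or below all values of the 4 PBS libraries in 1970 genes (15.6%), and in 1225 of the 1387 that passed. The authors' deposited table lists 1606 genes at an adjusted p under 0.05, of which 1503 were tested here and 1328 also passed here, 0 of them with the opposite sign.

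**Figure D1:**
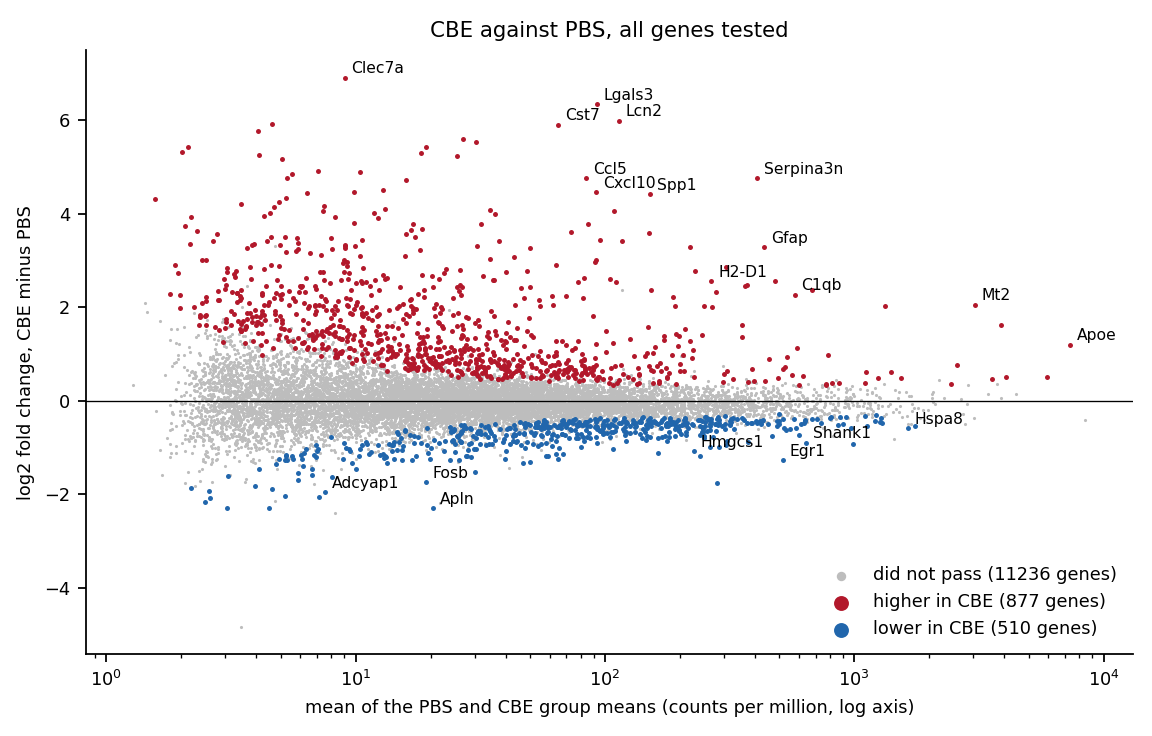
Each point is 1 of the genes tested, placed by the mean of the PBS and CBE group means (CPM, log axis) and by its log2 fold change in CBE; 877 genes higher in CBE are red, 510 lower are blue and the rest grey. Lgals3, at 6.34, lies near the top, whereas the deepest fall is that of Apln at -2.30, and genes that fell sit mostly among those of higher level.

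Among genes with more than 3 counts over the PBS libraries, the largest rise with no overlap between the groups was that of Lgals3, which encodes galectin-3, a sugar-binding protein that gathers on damaged lysosomes (chromosome 14, 47367751 to 47386160, GRCm38). It lay at 3.17, 2.77, 2.93 and 0.923 CPM in PBS and at 119, 98.3, 267 and 247 CPM in CBE (log2 fold change 6.34 ± 0.45, adjusted p = 1.3e-07). Every CBE library was far above every PBS library, and the day 40 libraries were the highest. Lcn2, an iron-binding secreted protein of reactive astrocytes, followed with 3.44, 4.47, 3.35 and 2.92 CPM in PBS and 116, 87.2, 366 and 326 CPM in CBE (log2 fold change 5.99 ± 0.66, adjusted p = 9.8e-06). A2m, a broad inhibitor of proteases, went from 0.529, 1.92, 0.419 and 1.69 to 27.5, 15, 45.5 and 150.3 CPM (log2 fold change 5.52 ± 0.67, adjusted p = 2.8e-05), and the 4 CBE libraries differed among themselves by as much as 15 against 150.3 CPM. Milr1, an inhibitory receptor of immune cells, went from 0.794, 1.06, 0.419 and 0.308 to 19.4, 21.7, 23.1 and 16.2 CPM (log2 fold change 4.90 ± 0.39, adjusted p = 2.8e-07). Glycam1, which encodes a mucin-like ligand for selectin, went from 0.794, 0, 0 and 0.462 to 14.6, 8.89, 9.45 and 10.3 CPM (log2 fold change 4.84 ± 0.60, adjusted p = 3.5e-05). Absence of overlap between the groups was a condition for the ranking of these 5.

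Several genes had almost no counts in PBS, and for these a ratio of pooled counts is given in place of a fitted change. Clec7a, the receptor dectin-1 that marks activated microglia, had 1, 1, 0 and 0 counts in the PBS libraries and 42, 22, 55 and 54 in the CBE libraries, a ratio at equal depth of 158 (95% counting interval 43.0 to 1312). Hcar2, a receptor for nicotinic acid and ketone bodies, had 0, 0, 1 and 0 against 6, 13, 9 and 9 counts, a ratio of 67.4 (95% counting interval 11.4 to 2734). Cxcl13, which attracts B cells, had 0, 0, 0 and 3 against 15, 31, 3 and 18 counts, a ratio of 40.7 (95% counting interval 13.3 to 202). St14, a membrane protease, had 0, 1, 1 and 0 against 4, 6, 9 and 10 counts, a ratio of 26.4 (95% counting interval 6.68 to 228). In all of them the CBE libraries had more counts than the PBS libraries, apart from Cxcl13, where CBE replicate 4 had as many counts as PBS replicate 5. The intervals cover counting error only, since the reads may not be independent molecules.

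The falls with no overlap were smaller. Apln, which encodes the peptide apelin made by vessel tip cells and some neurons (chromosome X, 48025146 to 48034853), lay at 31.5, 42.1, 32.7 and 28.8 CPM in PBS and 10.2, 8.89, 3.50 and 5.96 CPM in CBE (log2 fold change -2.30 ± 0.29, adjusted p = 4.6e-05). Adcyap1, which encodes the neuropeptide PACAP (chromosome 17, 93199017 to 93206537), lay at 11.1, 15.96, 12.6 and 8.77 against 2.69, 1.67, 2.80 and 4.64 CPM (log2 fold change -1.96 ± 0.33, adjusted p = 7.7e-04). Ninj2, an adhesion protein of glia, lay at 7.14, 10.6, 3.77 and 7.84 against 1.08, 3.33, 1.40 and 0.662 CPM (log2 fold change -2.29 ± 0.49, adjusted p = 0.0057). Fzd2, a receptor for Wnt proteins, lay at 13.2, 8.30, 10.5 and 8.15 against 4.31, 3.33, 2.10 and 3.64 CPM (log2 fold change -1.59 ± 0.33, adjusted p = 0.0043). Kcnj12, a potassium channel, lay at 9.26, 14.9, 10.5 and 12.9 against 6.47, 5.55, 3.50 and 0.993 CPM (log2 fold change -1.63 ± 0.38, adjusted p = 0.01). The fall of Kcnj12 was deepest in CBE replicate 6. Fzd2, Kcnj12 and Ninj2 lost their calls without the day 40 libraries (adjusted p up to 0.14). Kcnj12 lost its call without the 2 PBS libraries of high Xist (adjusted p = 0.053).

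**Figure D2:**
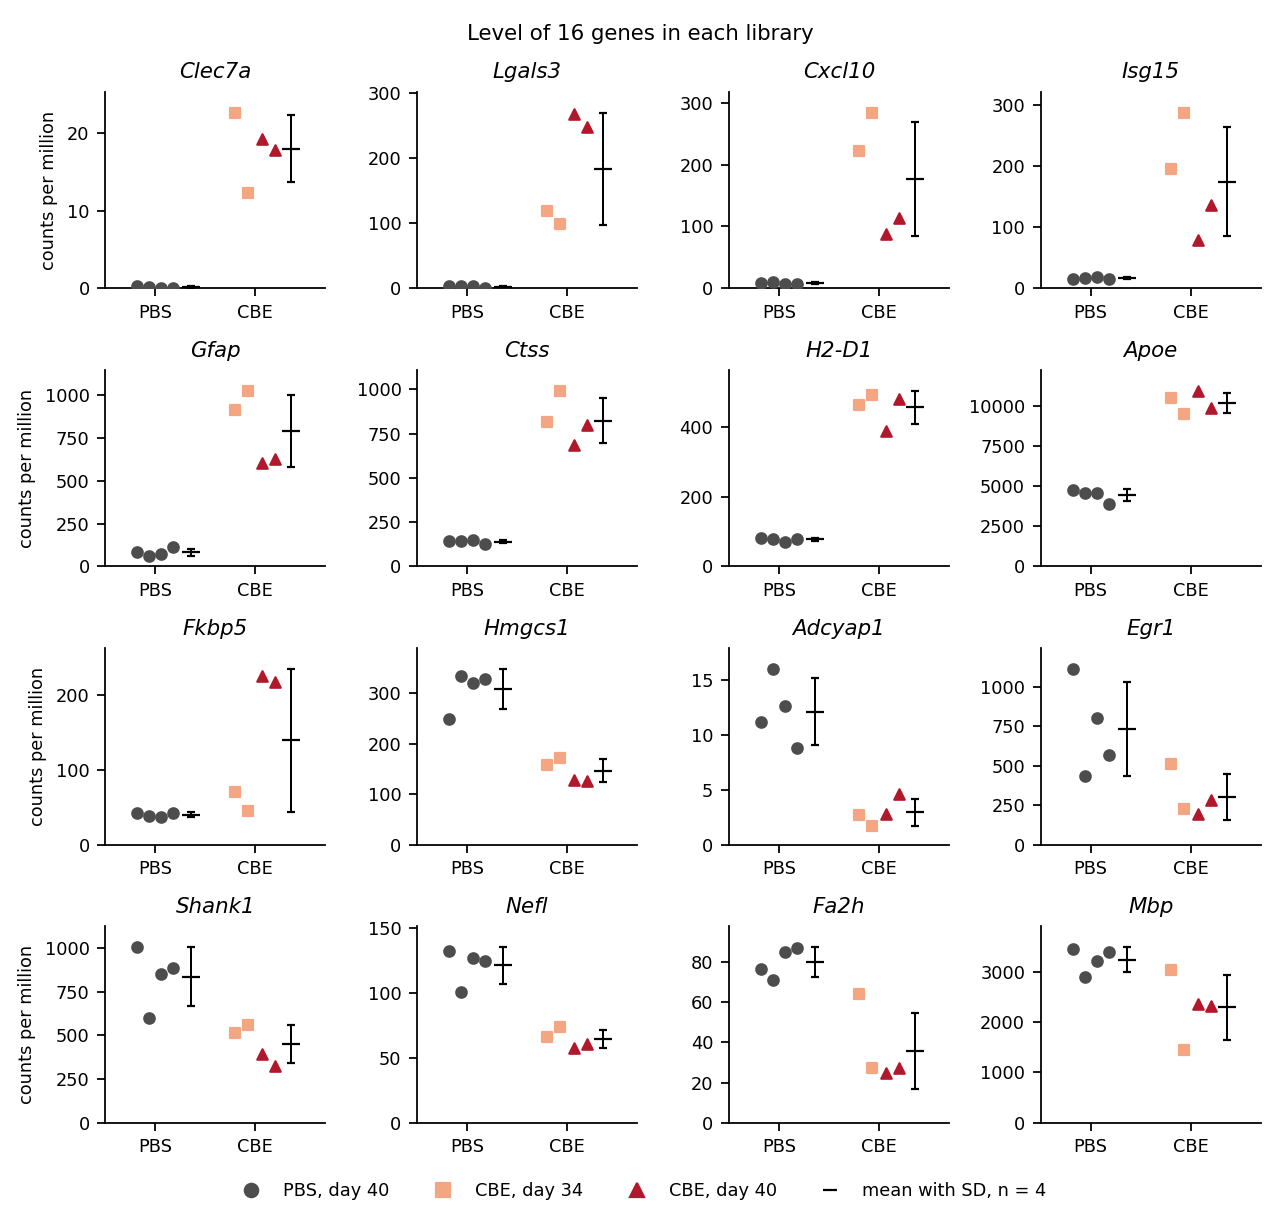
Each panel gives the level of 1 gene (CPM) in the 4 PBS libraries (circles), the day 34 CBE libraries (squares) and the day 40 CBE libraries (triangles), with the mean and SD of each group of 4. The day 40 points of Lgals3 and Fkbp5 lie above those of day 34 and the day 40 points of Cxcl10 and Isg15 below them, a difference that passed in Fkbp5 and Cxcl10, and Mbp overlaps between PBS and CBE.

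Genes of the interferon response rose at every tier from sensors to effectors. Interferons are secreted proteins that bind receptors coupled to JAK kinases, which activate STAT factors, and these join IRF9 to switch on antiviral genes. Of 13 tested sensors of nucleic acids and interferon-induced regulators 9 rose, of 20 receptors, kinases and factors 12 rose, of 39 antiviral effectors 36 rose and of 9 immunity-related GTPases 7 rose, and 0 fell in each tier. The medians of the log2 fold changes were 2.0, 1.04, 2.45 and 2.34, against -0.01 over all genes. Genes of type I and type II interferons themselves were not tested.

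The promoters of the effectors are printed because these genes moved together and carry a known letter pattern. Interferon-stimulated response elements (ISRE) are bound by STAT and IRF factors and were searched as GAAANNGAAA on both strands in windows from 250 bases before to 50 bases after the transcription start (RefSeq, GRCm38.p6). The 4 antiviral genes and 2 GTPase genes with the smallest p that have a match are shown as 60 bases of the gene's strand, written 5′ to 3′, with the matches in capitals. The stretches are chr8:71537562-71537621, minus strand for Bst2, chr19:34583382-34583441, plus strand for Ifit3, chr19:34640779-34640838, plus strand for Ifit1, chr4:156200850-156200909, minus strand for Isg15, chr11:48871421-48871480, minus strand for Irgm1 and chr11:58199496-58199555, plus strand for Igtp.
Bst2: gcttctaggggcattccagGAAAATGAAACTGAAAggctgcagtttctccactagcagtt
Ifit3: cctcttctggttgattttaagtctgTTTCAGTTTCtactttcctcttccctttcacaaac
Ifit1: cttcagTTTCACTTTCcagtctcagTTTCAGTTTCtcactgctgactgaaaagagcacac
Isg15: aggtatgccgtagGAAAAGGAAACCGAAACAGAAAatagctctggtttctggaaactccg
Irgm1: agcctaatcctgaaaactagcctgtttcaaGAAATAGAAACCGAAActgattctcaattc
Igtp: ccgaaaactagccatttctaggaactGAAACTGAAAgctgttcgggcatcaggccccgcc

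Of 31 antiviral effectors with a promoter window 14 had a match (45.2%), and of 8 immunity-related GTPases 7 had one (87.5%). The share was 3.66% over all 9628 tested genes with a window and 3.99% over all 27025 genes with one. Among genes that rose, 66 of 677 had a match (9.75%), among those that fell 20 of 384 (5.21%) and among those that did not pass 266 of 8567 (3.10%). A match describes letters in a window, and it says nothing of binding in these brains.

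Bst2, which encodes tetherin, a protein that holds budding viruses at the cell surface, lay at 26.2, 18.7, 26.8 and 21.8 CPM in PBS and 268, 405, 186 and 254 CPM in CBE (log2 fold change 3.58 ± 0.27, adjusted p = 1.5e-07). Isg15, a ubiquitin-like protein that is joined to other proteins during infection, lay at 15.9, 16.4, 18.4 and 14.3 against 196, 287, 79.1 and 136 CPM (log2 fold change 3.43 ± 0.32, adjusted p = 1.5e-06). Ifit1, which binds foreign RNA caps, lay at 3.70, 5.32, 2.93 and 4.46 against 72.8, 81.7, 29.8 and 54.0 CPM (log2 fold change 3.78 ± 0.32, adjusted p = 4.0e-07). Ifit3, its partner, lay at 8.47, 6.59, 7.96 and 13.5 against 100.2, 127, 51.5 and 85.8 CPM (log2 fold change 3.26 ± 0.27, adjusted p = 3.8e-07). In all 4 genes CBE replicate 4 was the lowest CBE library and CBE replicate 3 the highest, with no overlap with PBS. Ifit3 has a near-identical copy, Ifit3b, so reads may have been split between them. Oas3, a synthetase of the RNA decay pathway, lay at 0.265, 0.638, 0 and 0.308 against 14.6, 12.2, 4.20 and 10.3 CPM (log2 fold change 4.75 ± 0.60, adjusted p = 4.1e-05). The effectors that did not pass were Sp100, Oas1c and Ifitm1, named after their values were seen.

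Among the GTPases, which attack the vacuoles of intracellular microbes, Irgm1 lay at 12.2, 11.5, 10.9 and 14.2 against 107, 103, 52.9 and 79.5 CPM (log2 fold change 2.78 ± 0.21, adjusted p = 1.9e-07). Gbp2 lay at 3.97, 3.19, 2.93 and 2.77 against 34.0, 47.8, 12.96 and 18.2 CPM (log2 fold change 3.09 ± 0.36, adjusted p = 1.6e-05) and was lower at day 40 than at day 34 (-1.41 ± 0.26 between the days, adjusted p = 0.029). Gbp3 rose by 2.67 ± 0.32 and Igtp by 2.34 ± 0.25 (adjusted p = 2.3e-05 and 7.7e-06). Without the day 34 libraries 4 of these GTPases rose, since Iigp1, Gbp5 and Gbp7, named after their values were seen, no longer passed. The call of Gbp7 also ended without PBS replicate 2, 3 or 4 or CBE replicate 2 or 3 (adjusted p up to 0.092). Gbp5, Gbp7 and Iigp1 lost their calls without the day 34 libraries (adjusted p up to 0.31). Iigp1 lost its call without the 2 PBS libraries of high Xist (adjusted p = 0.075).

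At the sensor tier, Zbp1, which senses unusual nucleic acids and can start necroptosis, lay at 0.265, 1.06, 1.68 and 1.23 against 30.7, 36.1, 11.9 and 19.9 CPM (log2 fold change 4.50 ± 0.46, adjusted p = 4.1e-06). Ifi204, a DNA-binding protein of the same response, lay at 0.529, 0.425, 0.838 and 0.154 against 19.9, 13.3, 8.75 and 12.6 CPM (log2 fold change 4.91 ± 0.48, adjusted p = 2.7e-06). Eif2ak2, the kinase PKR, lay at 3.44, 3.404, 2.93 and 4.31 against 23.7, 41.1, 12.96 and 13.2 CPM (log2 fold change 2.60 ± 0.36, adjusted p = 1.1e-04). The groups did not overlap in any of the 3. The adaptors and enzymes Mavs (0.23 ± 0.38), Adar (-0.15 ± 0.11), Mb21d1 (1.28 ± 0.42) and Tmem173 (1.03 ± 0.40), which encode the RNA sensor adaptor, an RNA editing enzyme, cGAS and STING, did not pass (adjusted p = 0.75, 0.41, 0.059 and 0.11, named after their values were seen).

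At the signalling tier, Irf7, the master factor of type I interferon genes, lay at 10.8, 7.87, 11.3 and 18 against 188, 261, 125 and 248 CPM (log2 fold change 4.06 ± 0.29, adjusted p = 1.3e-07). Usp18, which removes ISG15 and dampens the receptor, lay at 2.12, 1.06, 3.35 and 3.23 against 31.3, 46.1, 14.7 and 25.2 CPM (log2 fold change 3.56 ± 0.41, adjusted p = 1.5e-05). Irf8 and Irf5, factors of myeloid cells, rose by 2.46 ± 0.23 and 1.87 ± 0.21 (adjusted p = 1.4e-06 and 1.5e-05). Irf9 and Stat2, parts of the type I complex, rose by 2.02 ± 0.25 and 1.25 ± 0.16 (adjusted p = 2.9e-05 and 4.6e-05), whereas Jak1 (0.03 ± 0.13), Tyk2 (0.23 ± 0.29), Jak2 (-0.46 ± 0.20) and Irf3 (-0.40 ± 0.21) did not pass (adjusted p = 0.92, 0.67, 0.17 and 0.26). These 6 were named after their values were seen.

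Most genes that present peptides on MHC class I rose, as did some of class II, where 6.95% of all tested genes rose. Class I molecules show fragments of a cell's own proteins on every cell, whereas class II molecules sit on professional antigen-presenting cells. Of 17 class I genes 12 rose (median 1.86) and 0 fell (1 without CBE replicate 3), and of 7 class II genes 3 rose (median 0.81), namely H2-Oa, H2-DMb1 and Cd74. H2-D1 lay at 81.8, 77.9, 70.4 and 80.0 CPM in PBS and 466, 493, 388 and 482 CPM in CBE (log2 fold change 2.56 ± 0.16, adjusted p = 7.1e-08). H2-K1 lay at 58.5, 64.2, 49.4 and 63.2 against 388, 464, 333 and 426 CPM (log2 fold change 2.76 ± 0.19, adjusted p = 1.3e-07). Tap1, which pumps peptides to these molecules, lay at 6.08, 7.45, 5.87 and 9.54 against 65.2, 85.5, 41.7 and 55.6 CPM (log2 fold change 3.04 ± 0.27, adjusted p = 8.8e-07). CBE replicate 4 was the lowest of the CBE libraries in each. Genes of the H2 family share sequence, so reads may be split between them. Class I genes that fell numbered 1 without the day 34 libraries. Class II genes that rose numbered 0 without the 2 PBS libraries of high Xist.

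The class II chain genes H2-Aa, H2-Ab1 and H2-Eb1 did not pass (log2 fold changes 0.37 ± 0.56, 0.81 ± 0.46 and 0.21 ± 0.63, adjusted p = 0.73, 0.3 and 0.87, named after their values were seen). H2-Aa lay at 8.202, 7.45, 4.19 and 5.54 CPM in PBS and 15.6, 17.8, 1.75 and 1.32 CPM in CBE, high in the day 34 libraries and low in the day 40 libraries (-3.44 ± 0.43 between the days, adjusted p = 0.0065). Set against PBS without the other day, it was higher at day 34 (log2 fold change 1.39, adjusted p = 0.0074) and lower at day 40 (-2.05, adjusted p = 0.0055). Cd74, the chain that guards class II molecules, lay at 3.70, 12.8, 2.09 and 5.23 against 22.1, 27.2, 9.80 and 13.6 CPM (log2 fold change 1.496 ± 0.44, adjusted p = 0.039). H2-Oa lay at 2.12, 4.47, 2.93 and 2.31 against 14.0, 10, 10.9 and 8.28 CPM (log2 fold change 1.84 ± 0.40, adjusted p = 0.006). The call of Cd74 ended without PBS replicate 2, 4 or 5 or CBE replicate 2, 3 or 6 (adjusted p up to 0.1) and that of H2-DMb1 ended without PBS replicate 5 (adjusted p up to 0.058). The number of class II genes that rose was 1 to 4 with 1 library left out, with the low end without PBS replicate 5, and 1 without the day 34 libraries. Whether class II genes rose less than class I genes was not tested. Cd74 and H2-DMb1 lost their calls without the day 34 libraries (adjusted p up to 0.29). Cd74, H2-DMb1 and H2-Oa lost their calls without the 2 PBS libraries of high Xist (adjusted p up to 0.27), and Cd74 with Xist level as a covariate (adjusted p = 0.1).

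The proteasome, which makes the peptides for class I, has inducible subunits that replace constitutive ones. All 5 tested subunits and activators of the immunoproteasome rose. Psmb8 lay at 15.9, 18.7, 9.63 and 14.5 against 115, 145, 73.9 and 118 CPM (log2 fold change 2.90 ± 0.22, adjusted p = 1.9e-07), Psmb9 at 3.97, 4.25, 5.03 and 2.92 against 22.6, 16.7, 10.2 and 13.2 CPM (log2 fold change 1.96 ± 0.33, adjusted p = 6.9e-04) and the activator Psme1 at 90.2, 119.6, 96.8 and 104 against 202, 265, 197 and 169 CPM (log2 fold change 1.01 ± 0.17, adjusted p = 6.4e-04). Of 14 constitutive subunits 1 rose, Psmb3, with the median of the list at 0.17. Psmb3 lay at 96.6, 98.3, 103 and 92.6 against 110.5, 112, 146 and 135 CPM (log2 fold change 0.37 ± 0.11, adjusted p = 0.045), and its call ended without PBS replicate 2, 3, 4 or 5 or CBE replicate 4 or 6 (adjusted p up to 0.14). Constitutive subunits that rose numbered 0 without the day 40 libraries, 0 without the 2 PBS libraries of high Xist and 0 with Xist level as a covariate. Psmb3 lost its call without the day 40 libraries (adjusted p = 0.42). Psmb3 lost its call without the 2 PBS libraries of high Xist (adjusted p = 0.21) and with Xist level as a covariate (adjusted p = 0.088).

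Chemokine genes had the highest median log2 fold change of the lists, among members tested. Chemokines are small secreted proteins that guide white blood cells. Of 22 in the counts 15 passed the filter on low counts, and of these 9 rose and 3 fell, with a median of 3.66. A gene with few counts in PBS could pass the filter through its counts in CBE, so the median and its rank depend on that filter. Ccl5, which draws T cells and monocytes, lay at 6.35, 6.59, 5.03 and 5.69 CPM in PBS and 133, 208, 118 and 192 CPM in CBE (log2 fold change 4.76 ± 0.28, adjusted p = 7.1e-08). Cxcl10, an interferon-induced ligand of CXCR3, lay at 7.94, 10.2, 6.70 and 6.77 against 222, 284, 87.5 and 114 CPM (log2 fold change 4.45 ± 0.36, adjusted p = 3.1e-07) and was lower at day 40 (-1.35 ± 0.26 between the days, adjusted p = 0.031). Ccl3 and Ccl4, ligands with similar sequence, lay at 1.59, 0.851, 1.68 and 0.615 against 39.3, 47.8, 68.6 and 54.3 CPM and at 1.06, 1.49, 0.419 and 0.462 against 39.3, 49.99, 38.9 and 14.9 CPM (log2 fold change 5.6 ± 0.39, adjusted p = 1.3e-07 and log2 fold change 5.29 ± 0.44, adjusted p = 3.9e-07). Cxcl16, made by phagocytes, lay at 3.17, 2.55, 2.51 and 1.23 against 33.4, 33.3, 21.0 and 38.1 CPM (log2 fold change 3.78 ± 0.30, adjusted p = 2.5e-07). No CBE library overlapped with PBS in these 5 genes, which for Ccl4 was a condition for naming it. Chemokine genes that fell numbered 1 without the day 34 libraries, 1 without the day 40 libraries and 1 without the 2 PBS libraries of high Xist.

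The 3 chemokine genes that fell are made by neurons and other resident cells at rest. Cx3cl1, the neuronal ligand that restrains microglia, lay at 832, 645, 788 and 618 against 523, 401, 567 and 537 CPM (log2 fold change -0.51 ± 0.13, adjusted p = 0.016). Ccl27a (log2 fold change -0.64 ± 0.14, adjusted p = 0.0069) and Cxcl12 (log2 fold change -0.46 ± 0.13, adjusted p = 0.032) fell too, and all 3 were named after their values were seen. The call of Cx3cl1 ended without PBS replicate 2 or 4 (adjusted p up to 0.076) and that of Cxcl12 ended without PBS replicate 2, 3, 4 or 5 or CBE replicate 3 or 4 (adjusted p up to 0.092). The number of chemokine genes that fell was 1 to 3 with 1 library left out, with the low end without PBS replicate 2 or 4. Cx3cl1 and Cxcl12 lost their calls without the day 34 libraries (adjusted p up to 0.095), and Ccl27a and Cxcl12 without the day 40 libraries (adjusted p up to 0.12). Cx3cl1 and Cxcl12 lost their calls without the 2 PBS libraries of high Xist (adjusted p up to 0.21), and Cxcl12 with Xist level as a covariate (adjusted p = 0.053).

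Among other ligands 8 of 21 rose and 2 fell, Bdnf and Vegfa, the vessel growth factor (log2 fold change -0.80 ± 0.20, adjusted p = 0.014, named after its values were seen). Spp1, the matrix protein osteopontin, lay at 16.4, 15.3, 10.1 and 12.2 against 241, 259, 349 and 311 CPM (log2 fold change 4.41 ± 0.29, adjusted p = 1.0e-07). Igf1, a growth factor of microglia, lay at 5.29, 6.17, 3.35 and 6.46 against 31.8, 41.1, 35.7 and 32.1 CPM (log2 fold change 2.66 ± 0.28, adjusted p = 6.7e-06). Csf1, which keeps microglia alive, lay at 24.1, 25.1, 33.1 and 31.8 against 91.6, 93.9, 53.2 and 58.6 CPM (log2 fold change 1.37 ± 0.19, adjusted p = 1.3e-04). Csf1 was higher in both day 34 libraries than in both day 40 libraries (-0.75 ± 0.20 between the days, adjusted p = 0.091). Bdnf, a neuronal growth factor, lay at 21.2, 7.45, 14.7 and 11.7 against 9.70, 5.55, 4.20 and 2.98 CPM (log2 fold change -1.34 ± 0.40, adjusted p = 0.042), and its call ended without PBS replicate 2, 4 or 5 or CBE replicate 3, 4 or 6 (adjusted p up to 0.15). Without any 1 of these libraries 1 ligand fell. Ligands that rose numbered 5 without the day 40 libraries. Ligands that fell numbered 0 without the day 40 libraries, 0 without the 2 PBS libraries of high Xist and 1 with Xist level as a covariate. Bdnf and Vegfa lost their calls without the day 40 libraries (adjusted p up to 0.42). Bdnf and Vegfa lost their calls without the 2 PBS libraries of high Xist (adjusted p up to 0.12), and Bdnf with Xist level as a covariate (adjusted p = 0.082).

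Receptors for cytokines and chemokines rose in 16 of 25 cases (median 1.15). Tnfrsf1a, the main receptor of tumour necrosis factor, lay at 23.02, 22.1, 20.1 and 23.8 against 71.7, 76.7, 66.2 and 92.4 CPM (log2 fold change 1.78 ± 0.17, adjusted p = 2.0e-06). Osmr, the receptor of oncostatin M on astrocytes, lay at 3.17, 1.28, 2.09 and 2.31 against 11.3, 15, 17.9 and 20.9 CPM (log2 fold change 2.88 ± 0.37, adjusted p = 5.5e-05). Csf2rb, a chain of the GM-CSF receptor, lay at 0.794, 1.702, 2.93 and 2.15 against 13.5, 7.78, 14.4 and 14.2 CPM (log2 fold change 2.75 ± 0.35, adjusted p = 4.7e-05). Csf1r, the receptor of the microglial survival factor, rose by 0.97 ± 0.16 (adjusted p = 6.3e-04, named after its values were seen) and was lower at day 40 than at day 34 (-0.71 ± 0.15 between the days, adjusted p = 0.044). Without the 2 PBS libraries of high Xist 10 receptors rose.

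Toll-like receptors bind microbial products and signal through the adaptor MYD88 to NF-kB. In this list 9 of 21 genes rose (median 0.67). Cd180, a relative of TLR4, lay at 3.97, 4.68, 4.61 and 2.46 against 80.8, 76.1, 57.4 and 46.4 CPM (log2 fold change 4.09 ± 0.30, adjusted p = 1.5e-07), Tlr2 at 5.29, 4.68, 1.68 and 2.15 against 31.3, 45.0, 29.1 and 26.5 CPM (log2 fold change 3.21 ± 0.33, adjusted p = 5.1e-06) and the co-receptor Cd14 at 3.17, 3.62, 1.68 and 3.85 against 11.3, 26.7, 23.1 and 14.9 CPM (log2 fold change 2.54 ± 0.30, adjusted p = 1.7e-05). Of kinases and factors downstream, Irak4, Irak1, Ikbkb, Nfkb1 and Rela had log2 fold changes of 0.55 ± 0.55, 0.12 ± 0.15, -0.19 ± 0.15, 0.27 ± 0.19 and 0.29 ± 0.15 and did not pass (adjusted p = 0.59, 0.66, 0.47, 0.4 and 0.26, named after their values were seen). Of genes of cell death 6 of 16 rose, among them Pycard, the inflammasome adaptor ASC (6.08, 10.2, 7.54 and 7.38 against 38.8, 63.9, 29.4 and 40.1 CPM, log2 fold change 2.43 ± 0.27, adjusted p = 9.8e-06), and Bid, a trigger of apoptosis (log2 fold change 1.34 ± 0.28, adjusted p = 0.0043).

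Most of the tested receptors of myeloid cells rose. Of 32 such genes in the counts 23 passed the filter on low counts, which a gene with few counts in PBS could pass through CBE. Of 23 receptors for antibody, sugars and sialic acid and their adaptors 20 rose (median 2.75), and Clec5a, Siglech and Sirpa, named after their values were seen, did not pass. Fcgr3, a receptor for antibody, lay at 27.8, 31.3, 35.2 and 23.5 CPM in PBS and 112, 149, 139.7 and 134 CPM in CBE (log2 fold change 2.199 ± 0.15, adjusted p = 1.3e-07). Cd52, a short surface glycoprotein, lay at 12.96, 7.45, 12.6 and 11.4 against 157, 166, 94.9 and 122 CPM (log2 fold change 3.61 ± 0.24, adjusted p = 1.0e-07). Cd300c2, an activating receptor, lay at 8.202, 9.36, 12.2 and 12 against 72.8, 58.9, 70.7 and 77.5 CPM (log2 fold change 2.75 ± 0.20, adjusted p = 1.3e-07). The inhibitory receptor Lilrb4a lay at 0.794, 0.425, 0.838 and 1.23 against 28.0, 25.6, 46.6 and 49.3 CPM (log2 fold change 5.41 ± 0.36, adjusted p = 1.0e-07), and its near-identical neighbour Lilr4b may share its reads. None of these 4 overlapped between the groups, and CBE replicate 4, the lowest CBE library in the antiviral genes above, was the lowest in Cd52 alone.

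PU.1 is the factor that sets up the myeloid gene programme. Its letters GAGGAAGT were searched on both strands of the same windows. No match shared a base with an ISRE match in any window, but the letters of the patterns leave almost no room for that. The share was 7.98% of genes that rose, 1.3% of genes that fell, 3.35% of those that did not pass and 3.59% of all tested. Among the myeloid receptors 3 of 18 had a match (16.7%). Of genes of disease-associated microglia 1 of 24 had one (4.17%), and of genes of resting microglia 0 of 14. The numbers were 2 of 5 for border macrophages and 1 of 4 for monocytes and neutrophils. Fcgr4 and Pirb, receptors for antibody and for MHC class I, are shown as examples of the pattern, chosen after their values were seen (chr1:171018866-171018925, plus strand and chr7:3720469-3720528, minus strand, GRCm38.p6), with the match in capitals and on the opposite strand in Fcgr4.
Fcgr4: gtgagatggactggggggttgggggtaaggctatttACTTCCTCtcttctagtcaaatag
Pirb: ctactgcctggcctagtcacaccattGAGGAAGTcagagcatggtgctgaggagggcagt

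**Figure D3:**
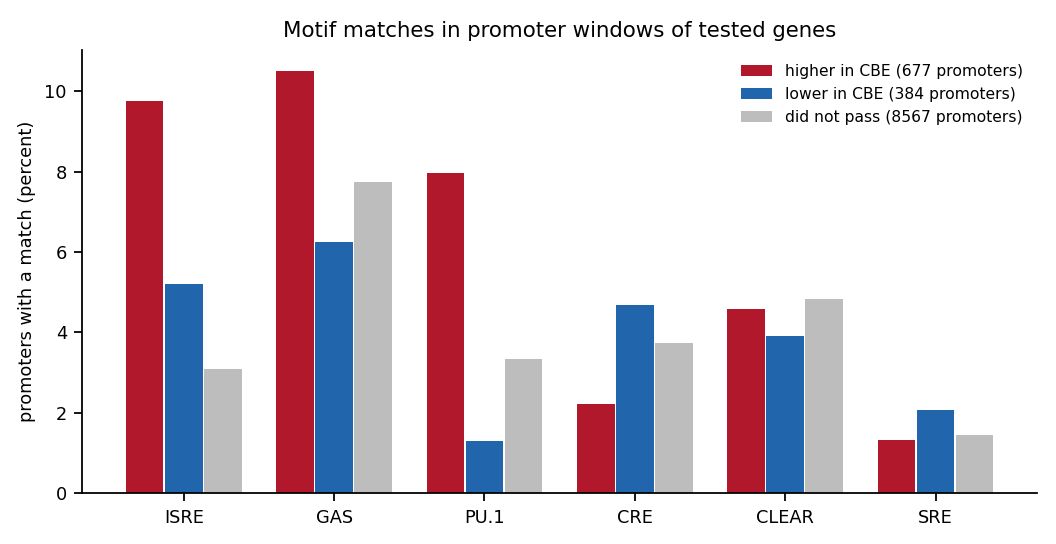
Bars give the percent of promoter windows with at least 1 match to each of 6 letter patterns for tested genes that rose (red, 677 windows), fell (blue, 384) or did not pass (grey, 8567). ISRE and PU.1 letters are more frequent among genes that rose (9.75% and 7.98%) than among those that did not pass (3.10% and 3.35%), with no test made.

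Complement tags material for uptake by phagocytes. Of 14 components and receptors 12 rose (median 2.34). C1qb, made by microglia, lay at 188, 208, 206 and 194 CPM in PBS and 932, 1162, 867 and 867 CPM in CBE (log2 fold change 2.26 ± 0.17, adjusted p = 1.5e-07). C3, the central component, lay at 1.06, 1.49, 1.68 and 0.615 against 39.9, 34.99, 19.6 and 28.5 CPM (log2 fold change 4.72 ± 0.39, adjusted p = 3.7e-07). C4b lay at 25.1, 15.96, 14.7 and 22.9 against 282, 283, 137 and 157 CPM (log2 fold change 3.42 ± 0.27, adjusted p = 2.6e-07). The 2 day 34 libraries were the highest in all 3 genes. Cfp and Cd59a, named after their values were seen, were the 2 that did not pass (-0.45 ± 0.30 and -0.37 ± 0.33, adjusted p = 0.38 and 0.54).

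Microglia have markers of a disease-associated state and of a resting state. In the first list 29 of 30 rose (median 2.46) and in the second 8 of 19 (median 0.76), and the difference between the lists was not tested. Cst7, an inhibitor of cathepsins, lay at 2.65, 2.34, 3.35 and 0.923 against 156, 210.5, 68.3 and 75.2 CPM (log2 fold change 5.90 ± 0.48, adjusted p = 3.7e-07), higher in the 2 day 34 libraries than in the 2 day 40 libraries (-1.38 ± 0.35 between the days, adjusted p = 0.085). Gpnmb, a glycoprotein of lipid-laden macrophages, lay at 0.265, 0.213, 0.838 and 0.615 against 8.62, 11.7, 9.80 and 9.93 CPM (log2 fold change 4.34 ± 0.50, adjusted p = 1.6e-05). Trem2, the lipid receptor needed for this state, lay at 31.8, 32.1, 31.8 and 34.0 against 211, 222, 179.6 and 142 CPM (log2 fold change 2.53 ± 0.21, adjusted p = 3.8e-07). Aif1, which encodes the microglial protein IBA1, lay at 27.0, 20.0, 21.8 and 26.9 against 112, 143, 62.7 and 81.8 CPM (log2 fold change 2.04 ± 0.23, adjusted p = 1.1e-05).

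Among resting-state genes, Ltc4s, an enzyme of leukotriene synthesis, lay at 14.0, 20.4, 16.3 and 13.4 against 36.1, 43.9, 40.6 and 38.4 CPM (log2 fold change 1.31 ± 0.19, adjusted p = 2.2e-04). P2ry12, the nucleotide receptor that marks resting microglia, lay at 16.4, 21.1, 23.5 and 18.8 CPM in PBS and 28.0, 31.1, 8.75 and 17.2 CPM in CBE (log2 fold change 0.06 ± 0.30, adjusted p = 0.93), overlapping between the groups. Tmem119 lay at 40.7, 54.0, 52.8 and 40.3 against 78.7, 142, 59.2 and 53.6 CPM (log2 fold change 0.81 ± 0.26, adjusted p = 0.053). Both were named after their values were seen. In both genes the 2 day 34 libraries lay above every PBS library, and in P2ry12 CBE replicate 4 lay below every PBS library. Without the 2 PBS libraries of high Xist 5 resting-state genes rose.

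Markers of other immune cells were few and mostly did not pass, where over all tested genes 6.95% rose. Of 5 tested markers of macrophages at the brain's borders 1 rose, Ms4a7, which lay at 1.59, 1.06, 0.419 and 0.769 against 19.9, 15.6, 15.8 and 11.3 CPM (log2 fold change 3.93 ± 0.45, adjusted p = 1.6e-05). Activated microglia are known to express Ms4a7 too. The defining markers Cd163 and Pf4 did not pass (log2 fold change 0.40 ± 0.51, adjusted p = 0.68 and log2 fold change 0.43 ± 0.39, adjusted p = 0.54, named after their values were seen). Of 4 tested markers of monocytes and neutrophils and 5 of T, NK and B cells 0 and 0 rose (1 of the second list without PBS replicate 3). S100a9, a calcium-binding protein of neutrophils, lay at 0.529, 12.8, 2.09 and 2.15 against 2.16, 0, 5.25 and 1.66 CPM (log2 fold change -0.89 ± 0.81, adjusted p = 0.54). Ighm, the heavy chain of IgM, lay at 40.7, 42.8, 54.0 and 30.0 against 52.3, 49.99, 16.5 and 17.6 CPM and was lower at day 40 than at day 34 (-1.61 ± 0.33 between the days, adjusted p = 0.041). The part of these cells in the chemokine and MHC results was not tested. Monocyte and neutrophil markers that rose numbered 1 without the day 40 libraries.

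Lysosomes hold proteases and hydrolases of sugars and lipids, kept acid by a proton pump, and autophagy delivers material to them. Of 14 cathepsins and lysosomal protease inhibitors 12 rose (median 1.49), of 31 hydrolases 11 rose and 1 fell (median 0.37), and of 27 membrane proteins and regulators 12 rose (median 0.54). Of 17 subunits of the proton pump 1 rose and 1 fell (median -0.01), and of 24 autophagy genes 0 rose and 1 fell (median -0.04). Over all tested genes 6.95% rose and 4.04% fell. The 2 single falls, Atp6v0b (-0.35 ± 0.11) and Map1lc3a (-0.47 ± 0.13), ended without PBS replicate 2, 3 or 4 or CBE replicate 2, 3, 4 or 6 (adjusted p up to 0.18) and without PBS replicate 2 or 4 or CBE replicate 2, 3, 4 or 6 (adjusted p up to 0.14). With any 1 library left out 12 to 12 of the cathepsin list rose. Hydrolases that rose numbered 7 without the day 40 libraries and 7 without the 2 PBS libraries of high Xist. Hydrolases that fell numbered 0 without the day 40 libraries and 0 without the 2 PBS libraries of high Xist. Proton pump genes that rose numbered 2 without the day 34 libraries. Proton pump genes that fell numbered 0 without the day 34 libraries, 0 without the day 40 libraries and 0 without the 2 PBS libraries of high Xist. Autophagy genes that fell numbered 0 without the day 40 libraries and 0 without the 2 PBS libraries of high Xist. Atp6v0b and Map1lc3a lost their calls without the day 34 libraries (adjusted p up to 0.14) and without the day 40 libraries (adjusted p up to 0.17). Atp6v0b and Map1lc3a lost their calls without the 2 PBS libraries of high Xist (adjusted p up to 0.081).

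Ctss, a cathepsin of microglia that stays active at neutral pH, lay at 141, 141, 147 and 129 CPM in PBS and 818, 991, 684 and 798 CPM in CBE (log2 fold change 2.56 ± 0.16, adjusted p = 7.1e-08). Ctsl, a cathepsin of all cells, lay at 164, 190.4, 176 and 165 against 462, 513, 535 and 622 CPM (log2 fold change 1.62 ± 0.14, adjusted p = 5.7e-07). Ctsz lay at 47.1, 57.0, 49.9 and 44.3 against 280.2, 284, 250 and 209.9 CPM (log2 fold change 2.37 ± 0.20, adjusted p = 4.0e-07). In each the CBE libraries lay above all PBS libraries. Among hydrolases, Naglu, which digests heparan sulfate, lay at 14.6, 14.9, 13.4 and 12.3 against 42.0, 41.7, 38.9 and 38.1 CPM (log2 fold change 1.54 ± 0.14, adjusted p = 1.3e-06). Man2b1, which trims mannose, lay at 66.7, 64.7, 67.0 and 65.5 against 132, 137, 146 and 126 CPM (log2 fold change 1.03 ± 0.11, adjusted p = 1.1e-05). In both genes too the groups did not overlap. The hydrolase that fell was Ids (log2 fold change -0.45 ± 0.13, adjusted p = 0.033, chosen after its value was seen), and its call ended without PBS replicate 2, 3 or 5 or CBE replicate 2, 4 or 6 (adjusted p up to 0.11). Ids lost its call without the day 40 libraries (adjusted p = 0.22). Ids lost its call without the 2 PBS libraries of high Xist (adjusted p = 0.09).

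Among membrane proteins, Cd68, a marker of phagocytic lysosomes, lay at 19.8, 19.6, 23.5 and 19.2 against 165, 189, 163 and 136 CPM (log2 fold change 3.001 ± 0.23, adjusted p = 1.9e-07). Laptm5, of white blood cell lysosomes, lay at 99.5, 108, 90.1 and 98.8 against 389.6, 485, 383 and 349 CPM (log2 fold change 2.01 ± 0.14, adjusted p = 1.3e-07). Grn, which encodes progranulin, lay at 115, 104, 102 and 111 against 506, 426, 409.7 and 387 CPM (log2 fold change 1.999 ± 0.19, adjusted p = 1.6e-06). Slc15a3, a transporter of bacterial peptides, lay at 1.59, 4.04, 2.09 and 2.62 against 31.3, 27.2, 46.6 and 32.1 CPM (log2 fold change 3.67 ± 0.29, adjusted p = 2.7e-07). Npc1, Tfeb and Sqstm1, which encode the lysosomal cholesterol exporter, the regulator of lysosome genes and an autophagy receptor, had log2 fold changes of 0.08 ± 0.14, 0.24 ± 0.27 and 0.11 ± 0.09 (adjusted p = 0.79, 0.62 and 0.47) and did not pass. They were named after their values were seen. In the proton pump Atp6v0e lay at 54.2, 53.4, 52.8 and 55.2 against 109.9, 94.4, 110.3 and 116 CPM (log2 fold change 0.997 ± 0.12, adjusted p = 3.6e-05).

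Genes that make and break glucosylceramide and gangliosides mostly did not pass, as was the case over all tested genes, where 6.95% rose and 4.04% fell. Of 18 tested 2 rose, Psap among them, and 1 fell, St8sia5. Psap, the precursor of the saposins that present lipids to lysosomal enzymes, lay at 704, 707, 739.8 and 669 against 819, 836, 954 and 1056 CPM (log2 fold change 0.38 ± 0.12, adjusted p = 0.048), and its call ended without PBS replicate 2, 3, 4 or 5 or CBE replicate 4 or 6 (adjusted p up to 0.16). St8sia5, a sialyltransferase of complex gangliosides, lay at 67.7, 66.4, 67.4 and 64.0 against 46.4, 56.1, 41.7 and 44.4 CPM (log2 fold change -0.50 ± 0.12, adjusted p = 0.013), and its call ended without CBE replicate 4 or 6 (adjusted p up to 0.051). Ugcg, which makes glucosylceramide, lay at 20.4, 24.9, 25.1 and 28.0 against 19.9, 23.9, 17.2 and 21.5 CPM. Gba2, which degrades it outside lysosomes, lay at 45.8, 51.7, 62.8 and 49.8 against 52.8, 46.7, 46.9 and 49.3 CPM, with overlap between the groups in both. Scarb2, the receptor that carries the enzyme blocked by CBE to lysosomes, lay at 129, 119.8, 142 and 133 against 162, 167, 148 and 135 CPM (log2 fold change 0.22 ± 0.10, adjusted p = 0.2). Glucosylceramide and ganglioside genes that rose numbered 1 without the 2 PBS libraries of high Xist and 1 with Xist level as a covariate. Glucosylceramide and ganglioside genes that fell numbered 0 without the day 40 libraries, 0 without the 2 PBS libraries of high Xist and 2 with Xist level as a covariate. Psap and St8sia5 lost their calls without the day 40 libraries (adjusted p up to 0.37). Psap and St8sia5 lost their calls without the 2 PBS libraries of high Xist (adjusted p up to 0.21), and Psap with Xist level as a covariate (adjusted p = 0.2).

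Many genes of cholesterol synthesis fell. Cells make sterols through a chain of enzymes that the factor SREBP2 switches on when sterols are scarce. Of 23 tested genes of this chain 14 fell (median -0.73) and 0 rose. Hmgcs1, an early enzyme (chromosome 13, 119690379 to 119708260), lay at 249.8, 334, 321 and 329 CPM in PBS and 158, 172, 128 and 126 CPM in CBE (log2 fold change -1.08 ± 0.15, adjusted p = 1.1e-04), with no overlap. Sc5d, a late enzyme, lay at 35.7, 41.5, 37.3 and 39.4 against 21.6, 22.8, 8.75 and 16.2 CPM (log2 fold change -1.19 ± 0.22, adjusted p = 0.0018). Srebf2, which encodes SREBP2 (-0.87 ± 0.17), and Insig1, which encodes its retention protein (-1.26 ± 0.27), fell as well (adjusted p = 0.0025 and 0.005, named after their values were seen). Without the day 40 libraries 4 genes of the chain fell, and without the 2 PBS libraries of high Xist 8. Cholesterol synthesis genes that rose numbered 1 without the day 34 libraries. Insig1 and Srebf2 lost their calls without the day 40 libraries (adjusted p up to 0.081).

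The promoter of Hmgcs1 is shown because it holds the letters TCACNCCAC of the sterol response element (SRE), searched on both strands, in capitals (chr13:119690189-119690248, plus strand, GRCm38.p6). The letters are in 1.33% of windows of genes that rose, 2.08% of those that fell and 1.45% of all tested. In the cholesterol synthesis list 1 of 16 windows had a match (6.25%), that of Hmgcs1.
Hmgcs1: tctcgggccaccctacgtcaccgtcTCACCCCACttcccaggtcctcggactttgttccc

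Apoe, the main lipid carrier of the brain, lay at 4765, 4582, 4580 and 3920 CPM in PBS and 10490, 9519, 10940 and 9890 CPM in CBE (log2 fold change 1.19 ± 0.11, adjusted p = 9.3e-07). Apoc1, a lipoprotein part of macrophages, lay at 5.29, 7.45, 5.03 and 6.31 against 31.3, 32.8, 44.1 and 40.1 CPM (log2 fold change 2.60 ± 0.20, adjusted p = 2.2e-07). Ch25h, which makes an oxysterol that holds back SREBP2, lay at 0.794, 1.49, 4.19 and 2.46 against 25.3, 22.8, 14.7 and 11.3 CPM (log2 fold change 3.09 ± 0.38, adjusted p = 3.4e-05). The groups did not overlap in any of these. Of 21 genes of lipoproteins and sterol efflux 7 rose and 1 fell, Abca2 (log2 fold change -0.50 ± 0.13, adjusted p = 0.019, chosen after its value was seen), whose call ended without PBS replicate 2 or CBE replicate 2 (adjusted p up to 0.088). Without PBS replicate 3 or CBE replicate 4 the number of this list that fell was 2. Among 26 genes of fatty acids 4 rose and 4 fell. Srebf1, the sister factor of SREBP2 that drives fatty acid synthesis, lay at 52.1, 46.6, 44.4 and 45.8 against 99.2, 86.1, 110.3 and 107 CPM (log2 fold change 1.09 ± 0.15, adjusted p = 1.0e-04). Fabp5, a fatty acid carrier, lay at 167, 92.5, 132 and 145 against 219, 200.5, 226 and 230.1 CPM (log2 fold change 0.71 ± 0.16, adjusted p = 0.0078). The number of fatty acid genes that fell was 0 to 2 with 1 library left out, moving by over 1.5 times without PBS replicate 2, 3, 4 or 5 or CBE replicate 2, 3, 4 or 6, and the number that rose was 2 to 5, with the low end without PBS replicate 2 or 4. Fatty acid genes that rose numbered 2 without the day 40 libraries and 1 without the 2 PBS libraries of high Xist. Fatty acid genes that fell numbered 0 without the day 40 libraries, 1 without the 2 PBS libraries of high Xist and 1 with Xist level as a covariate. Abca2 lost its call without the day 34 libraries (adjusted p = 0.14), and Fabp5 without the day 40 libraries (adjusted p = 0.078). Fabp5 lost its call without the 2 PBS libraries of high Xist (adjusted p = 0.053).

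Genes that bind metals and handle iron and oxidants rose in 12 of 27 cases (median 0.39). Mt2, a metallothionein, lay at 1215, 1026, 1244 and 1248 CPM in PBS and 4464, 3343, 5699 and 6084 CPM in CBE (log2 fold change 2.05 ± 0.18, adjusted p = 5.2e-07). Slc11a1, an iron transporter of phagosomes, lay at 6.61, 3.404, 8.80 and 6.15 against 31.3, 36.1, 26.3 and 31.5 CPM (log2 fold change 2.36 ± 0.25, adjusted p = 5.4e-06). Prdx6, a peroxidase of astrocytes, lay at 603, 474, 551 and 502 against 1164, 1045, 988 and 965 CPM (log2 fold change 0.97 ± 0.12, adjusted p = 4.0e-05). Mt1 rose by 1.62 ± 0.21 (adjusted p = 5.0e-05, chosen after its value was seen) and was higher at day 40 than at day 34 (0.99 ± 0.15 between the days, adjusted p = 0.0096). The ferritin genes Ftl1 and Fth1 rose by 0.85 ± 0.15 and 0.51 ± 0.11 (adjusted p = 0.0013 and 0.0059), whereas Gclc, Gclm and Txnrd1, which make glutathione and reduce thioredoxin, did not pass (0.10 ± 0.16, 0.03 ± 0.17 and 0.00 ± 0.14, adjusted p = 0.75, 0.93 and 0.99). These 5 were named after their values were seen. Fth1 lost its call without the day 40 libraries (adjusted p = 0.13).

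Some genes of the stress responses of protein folding passed, to be read beside the 6.95% of all tested genes that rose and 4.04% that fell. Of 26 genes of the unfolded protein and integrated stress responses 2 rose, Atf3 and Edem1, and 2 fell, Atf4 and Hsp90b1 (median -0.02). Atf3, a factor induced by many stresses, lay at 2.12, 4.04, 3.35 and 2.92 against 11.3, 15, 15.1 and 7.28 CPM (log2 fold change 1.95 ± 0.32, adjusted p = 6.2e-04). Atf4, the central factor of the integrated stress response, lay at 316, 263, 336 and 287 against 234, 232, 136 and 157 CPM (log2 fold change -0.67 ± 0.16, adjusted p = 0.013), and its call ended without CBE replicate 6 (adjusted p up to 0.055). The call of Hsp90b1 (-0.44 ± 0.11) ended without PBS replicate 2 (adjusted p up to 0.053) and that of Edem1 (0.79 ± 0.20) ended without PBS replicate 5 or CBE replicate 4 or 6 (adjusted p up to 0.06). Without CBE replicate 3, 5 genes of this list fell. Unfolded protein and integrated stress genes that rose numbered 1 without the day 40 libraries, 1 without the 2 PBS libraries of high Xist and 1 with Xist level as a covariate. Unfolded protein and integrated stress genes that fell numbered 5 without the day 34 libraries, 0 without the day 40 libraries and 0 without the 2 PBS libraries of high Xist. Atf4, Edem1 and Hsp90b1 lost their calls without the day 40 libraries (adjusted p up to 0.25). Atf4, Edem1 and Hsp90b1 lost their calls without the 2 PBS libraries of high Xist (adjusted p up to 0.15), and Edem1 and Hsp90b1 with Xist level as a covariate (adjusted p up to 0.077).

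Heat shock proteins fold other proteins. Of 15 tested 3 fell, Hsph1, Hspa8 and Hspa4, and 1 rose, Hspb8, where 4.04% and 6.95% of all tested genes did. Hsph1 lay at 355, 358, 341 and 344 CPM in PBS and 211, 230.5, 137 and 126 CPM in CBE (log2 fold change -0.997 ± 0.16, adjusted p = 6.1e-04), lower at day 40 than at day 34 (-0.77 ± 0.14 between the days, adjusted p = 0.029). Hspa8, the constitutive HSC70, lay at 1963, 2034, 2086 and 1800 against 1300, 1604, 1151 and 1184 CPM (log2 fold change -0.59 ± 0.11, adjusted p = 0.0025). Hspa4 lay at 101, 91.9, 108 and 121 against 74.9, 83.3, 36.4 and 42.4 CPM (log2 fold change -0.86 ± 0.21, adjusted p = 0.015), also lower at day 40 (-1.03 ± 0.20 between the days, adjusted p = 0.03), and its call ended without CBE replicate 6 (adjusted p up to 0.062). Hspb8, a small heat shock protein of glia, lay at 26.5, 21.1, 20.5 and 28.0 against 57.7, 48.9, 36.8 and 48.7 CPM (log2 fold change 0.98 ± 0.20, adjusted p = 0.0038). Heat shock genes that fell numbered 1 without the day 40 libraries. Hspa4 and Hspa8 lost their calls without the day 40 libraries (adjusted p up to 0.22). Hspa4 lost its call without the 2 PBS libraries of high Xist (adjusted p = 0.14).

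Genes that glucocorticoids induce rose in 5 of 16 cases, and the 3 described here were highest in the day 40 libraries. Fkbp5, a chaperone of the glucocorticoid receptor (chromosome 17, 28399094 to 28517527), lay at 42.9, 38.7, 36.9 and 42.3 CPM in PBS and 70.6, 44.4, 226 and 218 CPM in CBE (log2 fold change 1.81 ± 0.37, adjusted p = 0.0042), with the day 34 libraries closer to PBS than to the day 40 libraries (1.92 ± 0.25 between the days, adjusted p = 0.0065). Sult1a1, a sulfotransferase, lay at 17.7, 17.4, 16.8 and 12.9 against 30.2, 27.2, 69.3 and 95.03 CPM (log2 fold change 1.81 ± 0.32, adjusted p = 0.0011) with the same order of days (1.49 ± 0.24 between the days, adjusted p = 0.017). Sgk1, a kinase, lay at 103, 92.8, 112 and 84.3 against 169, 129, 235 and 254 CPM (log2 fold change 1.02 ± 0.17, adjusted p = 7.4e-04), and the difference between the days did not pass (0.69 ± 0.16 between the days, adjusted p = 0.068). Without the day 40 libraries 2 genes of this list rose. Of 18 clock genes 2 rose, Ciart and Dbp, and 1 fell, Arntl, where 6.95% and 4.04% of all tested genes did. Ciart, a repressor of the clock, lay at 10.6, 11.7, 10.5 and 8.92 against 25.3, 16.7, 24.5 and 21.9 CPM (log2 fold change 1.09 ± 0.22, adjusted p = 0.003). The call of Dbp (0.63 ± 0.16) ended without PBS replicate 4 or 5 or CBE replicate 2 or 3 (adjusted p up to 0.064) and that of Arntl (-0.65 ± 0.19) ended without PBS replicate 2, 3, 4 or 5 or CBE replicate 2, 3 or 6 (adjusted p up to 0.097). The time of day of sampling is not stated in the labels. Glucocorticoid-responsive genes that rose numbered 2 without the 2 PBS libraries of high Xist. Circadian genes that rose numbered 4 without the day 34 libraries and 0 without the 2 PBS libraries of high Xist. Circadian genes that fell numbered 0 without the day 34 libraries and 0 without the 2 PBS libraries of high Xist. Arntl and Dbp lost their calls without the day 34 libraries (adjusted p up to 0.26), and Fkbp5 without the day 40 libraries (adjusted p = 0.25). Arntl, Ciart, Dbp and Fkbp5 lost their calls without the 2 PBS libraries of high Xist (adjusted p up to 0.19).

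Of 28 genes of reactive astrocytes 23 rose (median 2.48), whereas of 30 genes of astrocyte homeostasis 8 rose and 1 fell (median 0.08). Serpina3n, a secreted protease inhibitor, lay at 14.6, 27.0, 29.7 and 43.7 CPM in PBS and 667, 543, 962 and 980.1 CPM in CBE (log2 fold change 4.76 ± 0.34, adjusted p = 1.4e-07). Gfap, the astrocyte filament, lay at 84.7, 59.1, 70.0 and 110.3 against 911, 1024, 605 and 626 CPM (log2 fold change 3.28 ± 0.27, adjusted p = 3.9e-07). Vim, a filament of reactive and immature cells, lay at 97.1, 67.2, 66.6 and 67.1 against 491, 478, 629.6 and 562 CPM (log2 fold change 2.86 ± 0.22, adjusted p = 2.0e-07). Timp1, an inhibitor of matrix proteases, lay at 2.12, 1.702, 1.26 and 0.462 against 38.8, 37.2, 36.8 and 85.8 CPM (log2 fold change 5.24 ± 0.41, adjusted p = 2.6e-07), with CBE replicate 6 above the other 3. Gfap was highest in the day 34 libraries and Serpina3n and Vim in the day 40 libraries, though none of these day differences passed. Homeostasis genes of astrocytes that rose numbered 5 without the day 40 libraries. Homeostasis genes of astrocytes that fell numbered 2 without the day 34 libraries.

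Among genes of astrocyte homeostasis, Clu, a secreted chaperone, lay at 2143, 1723, 1906 and 1887 against 3454, 3083, 3339 and 3070 CPM (log2 fold change 0.76 ± 0.10, adjusted p = 7.7e-05). Slc1a3, a glutamate transporter, lay at 297, 306, 302 and 296 against 450.5, 456, 476 and 523 CPM (log2 fold change 0.67 ± 0.10, adjusted p = 2.6e-04). Mlc1, of astrocyte endfeet, lay at 248, 247, 234 and 237 against 399, 403, 366 and 335 CPM (log2 fold change 0.64 ± 0.11, adjusted p = 9.8e-04). The gene that fell (1 more fell without CBE replicate 2) was Mfge8, a bridge between dying cells and phagocytes that astrocytes make. It lay at 426, 386, 382 and 331 against 233, 278, 128 and 129.5 CPM (log2 fold change -0.996 ± 0.20, adjusted p = 0.0034), with a deeper fall at day 40 (-1.01 ± 0.15 between the days, adjusted p = 0.0096). Secreted inhibitors of proteases rose in 10 of 14 cases, among them Serping1, the inhibitor of C1 (14.0, 10.6, 7.12 and 8.61 against 53.4, 76.1, 50.8 and 64.9 CPM, log2 fold change 2.58 ± 0.26, adjusted p = 3.6e-06). Without the 2 PBS libraries of high Xist 4 homeostasis genes and 5 protease inhibitors rose.

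Of 26 myelin genes 5 fell, among them Ninj2, Gpr37, Car2 and Opalin, and 1 rose, Apod, with a median of -0.48. Mbp, a main myelin protein, lay at 3461, 2906, 3213 and 3401 CPM in PBS and 3037, 1450, 2370 and 2333 CPM in CBE (log2 fold change -0.50 ± 0.23, adjusted p = 0.19). It did not pass, and 1 day 34 library was the lowest and the other the highest of CBE. Apod, a lipid carrier of oligodendrocytes and reactive glia, lay at 351, 393, 329 and 405 against 673, 511, 824 and 1222 CPM (log2 fold change 1.13 ± 0.19, adjusted p = 8.1e-04). Car2, a carbonic anhydrase of oligodendrocytes, lay at 279, 333, 327 and 319 against 256, 239, 112 and 124 CPM (log2 fold change -0.79 ± 0.22, adjusted p = 0.026), lower at day 40 than at day 34 (-1.09 ± 0.17 between the days, adjusted p = 0.015), and its call ended without PBS replicate 3 or 4 or CBE replicate 4 or 6 (adjusted p up to 0.096). Opalin was named after its values were seen. Myelin genes that fell numbered 1 without the 2 PBS libraries of high Xist and 1 with Xist level as a covariate. Car2 lost its call without the day 40 libraries (adjusted p = 0.28). Car2 lost its call without the 2 PBS libraries of high Xist (adjusted p = 0.14) and with Xist level as a covariate (adjusted p = 0.063).

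The count of myelin genes that fell was 1 to 13 with 1 library left out, moving by over 1.5 times without PBS replicate 2, 3 or 4 or CBE replicate 2, 3, 4 or 6, and 11 without the day 34 libraries against 0 without the day 40 libraries. The call of Gpr37 ended without PBS replicate 2 or 4 or CBE replicate 3, 4 or 6 (adjusted p up to 0.098) and that of Opalin ended without PBS replicate 2, 3, 4 or 5 or CBE replicate 3, 4 or 6 (adjusted p up to 0.14). Galactolipids make up much of myelin. Of 12 genes that make or degrade them 3 fell, Ugt8a, Fa2h and Gal3st1, and 1 fell without CBE replicate 6. Ugt8a, which adds galactose, lay at 9.53, 8.72, 12.99 and 13.7 against 4.85, 4.999, 0.700 and 1.32 CPM (log2 fold change -2.07 ± 0.45, adjusted p = 0.0061), with the lowest values at day 40. Fa2h, which hydroxylates the fatty acid, lay at 76.5, 71.3, 85.0 and 87.1 against 64.1, 27.2, 24.5 and 27.5 CPM (log2 fold change -1.18 ± 0.31, adjusted p = 0.021), and its call ended without CBE replicate 3, 4 or 6 (adjusted p up to 0.08). Gal3st1, which adds sulfate, lay at 18.3, 22.8, 21.4 and 27.1 against 12.9, 8.33, 15.8 and 10.3 CPM (log2 fold change -0.91 ± 0.23, adjusted p = 0.017), and its call ended without PBS replicate 5 or CBE replicate 6 (adjusted p up to 0.062). Of 20 genes of precursors and new oligodendrocytes 1 rose, Vcan (log2 fold change 1.54 ± 0.41, adjusted p = 0.023), whose call ended without PBS replicate 2 or 4 or CBE replicate 6 (adjusted p up to 0.12), and 0 fell (median -0.28), or 1 to 2 without PBS replicate 3 or CBE replicate 2 or 3. Galactolipid genes that fell numbered 0 without the day 40 libraries, 0 without the 2 PBS libraries of high Xist and 1 with Xist level as a covariate. The precursor counts stand beside 6.95% of all tested genes that rose and 4.04% that fell. Precursor and new oligodendrocyte genes that rose numbered 0 without the day 40 libraries and 0 without the 2 PBS libraries of high Xist. Precursor and new oligodendrocyte genes that fell numbered 4 without the day 34 libraries. Gal3st1 lost its call without the day 34 libraries (adjusted p = 0.068), and Fa2h, Gal3st1, Gpr37, Opalin, Ugt8a and Vcan without the day 40 libraries (adjusted p up to 0.45). Fa2h, Gal3st1, Gpr37, Opalin, Ugt8a and Vcan lost their calls without the 2 PBS libraries of high Xist (adjusted p up to 0.2), and Fa2h, Gal3st1, Gpr37 and Opalin with Xist level as a covariate (adjusted p up to 0.11).

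Some neuronal genes fell. Of the neuron markers described here Rbfox3, Snap25 and Gad1 did not pass, whereas Tubb3 fell. Rbfox3, which encodes NeuN, lay at 1327, 1033, 1079 and 1076 CPM in PBS and 1016, 794, 1265 and 1076 CPM in CBE (log2 fold change -0.12 ± 0.13, adjusted p = 0.62), with overlap between the groups. Of 23 genes of neurofilaments and the axonal cytoskeleton 12 fell (median -0.53), of 29 presynaptic genes 8 fell (median -0.34), of 27 postsynaptic genes 5 fell (median -0.38), of 28 potassium and sodium channels 7 fell (median -0.33) and of 26 genes of calcium handling 5 fell (median -0.29). In these 5 lists 0 genes rose. Of 19 markers of neurons of single regions 0 fell and 0 rose (median -0.23), or 1 rose without PBS replicate 3. Among these Pcp4 lay at 284, 756, 319.6 and 272 against 245, 219.9, 214 and 492 CPM, high in 1 library of each group. Presynaptic genes that fell numbered 3 without the day 34 libraries, 3 without the day 40 libraries and 2 without the 2 PBS libraries of high Xist. Postsynaptic genes that fell numbered 3 without the 2 PBS libraries of high Xist. Channel genes that fell numbered 4 without the day 34 libraries, 3 without the day 40 libraries and 1 without the 2 PBS libraries of high Xist. Calcium genes that fell numbered 1 without the day 34 libraries, 3 without the day 40 libraries and 1 without the 2 PBS libraries of high Xist. Regional markers that fell numbered 1 without the day 34 libraries.

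The neurofilament genes Nefl and Nefm lay at 132, 100.4, 126 and 125 against 65.8, 73.3, 57.8 and 60.3 CPM and at 175, 168, 149 and 137 against 97.0, 82.2, 94.5 and 72.2 CPM (log2 fold change -0.92 ± 0.13, adjusted p = 1.1e-04 and log2 fold change -0.86 ± 0.13, adjusted p = 2.7e-04), with no overlap. Tubb3, a tubulin of neurons, lay at 272, 366, 345 and 274 against 186, 232, 155 and 174 CPM (log2 fold change -0.75 ± 0.15, adjusted p = 0.0036). Stmn3, which regulates microtubules, lay at 1381, 1616, 1461 and 1577 against 1077, 1021, 1229 and 994 CPM (log2 fold change -0.48 ± 0.10, adjusted p = 0.0056). In all 4 genes each CBE library lay below each PBS library. The number of cytoskeleton genes that fell was 7 to 11 with 1 library left out, with the low end without PBS replicate 2 or CBE replicate 6, 3 without the day 40 libraries and 5 without the 2 PBS libraries of high Xist. Tubb3 lost its call without the day 40 libraries (adjusted p = 0.1). Stmn3 lost its call without the 2 PBS libraries of high Xist (adjusted p = 0.051).

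At synapses, Syt2, a calcium sensor of fast-spiking terminals, lay at 35.7, 38.3, 39.0 and 40.3 against 18.3, 8.89, 25.9 and 18.9 CPM (log2 fold change -1.06 ± 0.23, adjusted p = 0.007). On the receiving side Homer1 and Shank1, scaffolds of glutamate synapses, lay at 109, 61.5, 76.7 and 103 against 42.6, 40.0, 37.5 and 40.1 CPM and at 1005, 602, 849.9 and 883 against 516, 562, 395 and 324 CPM (log2 fold change -1.13 ± 0.18, adjusted p = 5.0e-04 and log2 fold change -0.90 ± 0.17, adjusted p = 0.002). Dlg4, which encodes PSD-95, lay at 869, 604, 756 and 568 against 515, 495, 404 and 454 CPM (log2 fold change -0.58 ± 0.13, adjusted p = 0.0076). In these 4 genes the groups did not overlap. Snap25, of the release machinery, and Gad1, which makes GABA, did not pass (log2 fold change -0.22 ± 0.16, adjusted p = 0.43 and log2 fold change -0.15 ± 0.12, adjusted p = 0.48, named after their values were seen). When any 1 library was left out 3 to 6 presynaptic genes fell, moving by over 1.5 times without PBS replicate 2, 3 or 4 or CBE replicate 3, 4 or 6. Without the day 40 libraries 2 postsynaptic genes fell. Dlg4 and Shank1 lost their calls without the day 40 libraries (adjusted p up to 0.14). Syt2 lost its call without the 2 PBS libraries of high Xist (adjusted p = 0.057).

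Among channels, Scn2b, a sodium channel subunit, lay at 147, 205, 184 and 182 against 124, 118, 83.0 and 88.4 CPM (log2 fold change -0.80 ± 0.15, adjusted p = 0.002), and Kcnc1, the potassium channel Kv3.1 of fast-spiking neurons, at 143, 125, 161.3 and 141 against 93.8, 94.98, 98.4 and 86.1 CPM (log2 fold change -0.61 ± 0.13, adjusted p = 0.0042). Atp2b2, a calcium pump abundant in Purkinje cells, lay at 824, 638, 767 and 767 against 427, 304, 507 and 548 CPM (log2 fold change -0.74 ± 0.18, adjusted p = 0.01). The groups did not overlap in any of the 3. Pvalb, the calcium buffer parvalbumin of fast-spiking neurons, lay at 169, 124, 162 and 128 against 104, 57.8, 120.1 and 88.4 CPM (log2 fold change -0.65 ± 0.18, adjusted p = 0.025), and its call ended without PBS replicate 2 or 4 or CBE replicate 6 (adjusted p up to 0.092). With each library left out in turn, 2 to 5 channel genes fell, moving by over 1.5 times without PBS replicate 2, 3, 4 or 5 or CBE replicate 3, 4 or 6, and 2 to 4 calcium genes, moving by over 1.5 times without PBS replicate 2, 3, 4 or 5 or CBE replicate 2, 4 or 6. Atp2b2 and Pvalb lost their calls without the day 34 libraries (adjusted p up to 0.074), and Scn2b without the day 40 libraries (adjusted p = 0.062). Atp2b2, Kcnc1 and Pvalb lost their calls without the 2 PBS libraries of high Xist (adjusted p up to 0.1).

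Neuropeptide genes fell in 4 of 23 cases, Adcyap1, Vgf, Crh and Bdnf (median -0.35). Vgf, a secreted precursor, lay at 583, 554, 533 and 434 against 329, 366, 370.5 and 429 CPM (log2 fold change -0.49 ± 0.12, adjusted p = 0.014), and its call ended without PBS replicate 2 or 3 (adjusted p up to 0.068). Crh, which starts the stress hormone axis, lay at 23.02, 15.1, 17.6 and 15.4 against 11.3, 4.999, 4.90 and 10.6 CPM (log2 fold change -1.15 ± 0.32, adjusted p = 0.028), and its call ended without PBS replicate 2 or 4 or CBE replicate 3 or 4 (adjusted p up to 0.1). On leaving out 1 library 2 to 4 genes fell, with the low end without PBS replicate 2 or 4 or CBE replicate 3 or 4. The fall of Adcyap1, given above, passed with any 1 library left out. Neuropeptide genes that fell numbered 2 without the day 34 libraries. Crh and Vgf lost their calls without the day 34 libraries (adjusted p up to 0.094), and Crh without the day 40 libraries (adjusted p = 0.16). Crh lost its call without the 2 PBS libraries of high Xist (adjusted p = 0.077).

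Immediate early genes switch on within minutes of neuronal firing. Of 25 tested 11 fell and 0 rose, with a median of -0.83. Egr1 lay at 1113, 434, 805 and 569.5 CPM in PBS and 510.3, 223, 193 and 281 CPM in CBE (log2 fold change -1.28 ± 0.29, adjusted p = 0.0078), and Egr3 at 188, 120.2, 149.5 and 123 against 105, 43.9, 72.8 and 63.2 CPM (log2 fold change -1.02 ± 0.21, adjusted p = 0.0039). Fosb lay at 54.8, 17.7, 22.6 and 21.8 against 10.8, 13.9, 4.90 and 6.62 CPM (log2 fold change -1.75 ± 0.37, adjusted p = 0.0051). Levels varied among PBS libraries, with replicate 2 the highest in all 3, and Egr1 overlapped between the groups. Arc, which acts at synapses, lay at 714, 237, 463 and 321 against 288, 114, 29.8 and 86.8 CPM (log2 fold change -1.76 ± 0.47, adjusted p = 0.022), and its call ended without PBS replicate 2 or CBE replicate 6 (adjusted p up to 0.089). Fos did not pass (log2 fold change -0.77 ± 0.38, adjusted p = 0.22), and Arc and Fos were named after their values were seen. With any 1 library removed 4 to 12 fell, moving by over 1.5 times without PBS replicate 2 or 4 or CBE replicate 4 or 6, and 1 fell without the day 40 libraries against 14 without the day 34 libraries. Immediate early genes that fell numbered 4 without the 2 PBS libraries of high Xist and 6 with Xist level as a covariate. Arc, Egr1, Egr3 and Fosb lost their calls without the day 40 libraries (adjusted p up to 0.18). Arc lost its call without the 2 PBS libraries of high Xist (adjusted p = 0.061).

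Of 25 endothelial genes 2 rose, Icam1 and Vwf, and 3 fell, Apln, Flt1 and Slco1c1 (median -0.05). The shares over all tested genes were 6.95% higher and 4.04% lower. Icam1, to which white blood cells bind, lay at 4.23, 4.47, 2.09 and 3.85 CPM in PBS and 17.2, 15.6, 33.6 and 26.2 CPM in CBE (log2 fold change 2.62 ± 0.31, adjusted p = 2.0e-05). Vwf, released by endothelium, lay at 14.3, 9.57, 10.1 and 11.4 against 22.6, 22.2, 22.1 and 32.1 CPM (log2 fold change 1.13 ± 0.20, adjusted p = 0.0012). Cldn5, which seals the blood-brain barrier, and Pecam1 did not pass (log2 fold change -0.11 ± 0.22, adjusted p = 0.8 and log2 fold change 0.19 ± 0.20, adjusted p = 0.61). The call of Flt1, a receptor of VEGF (-0.53 ± 0.14), ended without PBS replicate 2 or 5 or CBE replicate 6 (adjusted p up to 0.082), and that of Slco1c1, a thyroid hormone transporter (-0.86 ± 0.27), ended without PBS replicate 2, 3 or 4 or CBE replicate 2, 4 or 6 (adjusted p up to 0.13). Cldn5, Pecam1 and Slco1c1 were named after their values were seen. The number of endothelial genes that fell was 1 to 5 with 1 library left out, moving by over 1.5 times without PBS replicate 2 or CBE replicate 3 or 6, and that of genes that rose was 2 to 4, moving without CBE replicate 3 or 4. Endothelial genes that rose numbered 4 without the day 34 libraries and 4 without the day 40 libraries. Endothelial genes that fell numbered 6 without the day 34 libraries, 1 without the day 40 libraries, 1 without the 2 PBS libraries of high Xist and 1 with Xist level as a covariate. Flt1 and Slco1c1 lost their calls without the day 40 libraries (adjusted p up to 0.3). Flt1 and Slco1c1 lost their calls without the 2 PBS libraries of high Xist (adjusted p up to 0.11) and with Xist level as a covariate (adjusted p up to 0.057).

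Of 17 markers of pericytes, smooth muscle and fibroblasts 3 fell, Tagln, Rgs5 and Acta2, and 1 rose, Sparc, which microglia also make (296, 335, 264 and 384 against 529, 635, 573 and 631 CPM, log2 fold change 0.89 ± 0.12, adjusted p = 8.7e-05). The counts in this paragraph stand beside 4.04% of all tested genes that fell and 6.95% that rose. The call of Tagln (-1.04 ± 0.28) ended without PBS replicate 2, 3 or 5 or CBE replicate 4 or 6 (adjusted p up to 0.078), that of Rgs5 (-0.76 ± 0.23) ended without PBS replicate 2, 3 or 5 or CBE replicate 2, 4 or 6 (adjusted p up to 0.15) and that of Acta2 (-1.19 ± 0.37) ended without PBS replicate 2, 3 or 5 or CBE replicate 4 or 6 (adjusted p up to 0.18). Of 9 markers of choroid plexus and ependyma 2 rose, Rarres2, which encodes chemerin (16.4, 19.8, 17.6 and 30.1 against 47.4, 56.6, 35.4 and 44.7 CPM, log2 fold change 1.10 ± 0.22, adjusted p = 0.004), and Foxj1, a factor of ciliated cells (log2 fold change 1.14 ± 0.29, adjusted p = 0.016), whose call ended without CBE replicate 2 (adjusted p up to 0.052). Ttr did not pass (log2 fold change 2.36 ± 0.90, adjusted p = 0.11). Of 6 genes of red blood cells 1 fell, Hbb-bt, a haemoglobin chain (294, 491, 305 and 241 against 197, 218, 73.2 and 105 CPM, log2 fold change -1.18 ± 0.31, adjusted p = 0.022), whose call ended without PBS replicate 3 or CBE replicate 4 or 6 (adjusted p up to 0.083). Haemoglobin genes are near-identical copies, and whether the brains were perfused is not stated in the labels. Pericyte, smooth muscle and fibroblast markers that fell numbered 0 without the day 40 libraries and 1 with Xist level as a covariate. Choroid plexus and ependyma markers that rose numbered 1 without the day 34 libraries and 1 without the 2 PBS libraries of high Xist. Red blood cell genes that fell numbered 0 without the day 40 libraries and 4 with Xist level as a covariate. Foxj1 and Rgs5 lost their calls without the day 34 libraries (adjusted p up to 0.11), and Acta2, Hbb-bt, Rgs5 and Tagln without the day 40 libraries (adjusted p up to 0.52). Foxj1 and Rgs5 lost their calls without the 2 PBS libraries of high Xist (adjusted p up to 0.079), and Acta2 and Rgs5 with Xist level as a covariate (adjusted p up to 0.076).

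Genes of the matrix and of adhesion rose in 9 of 24 cases and fell in 1, or 2 without CBE replicate 3. Lgals3bp, which binds galectin-3, lay at 44.2, 48.7, 31.8 and 38.6 against 429, 588, 317 and 262 CPM (log2 fold change 3.27 ± 0.27, adjusted p = 3.8e-07). Lgals9, a galectin that interferon induces, lay at 17.2, 18.5, 12.99 and 17.8 against 88.9, 93.3, 35.4 and 65.6 CPM (log2 fold change 2.05 ± 0.26, adjusted p = 5.1e-05). Ncan, a proteoglycan of the perineuronal matrix, fell (168, 141, 137 and 155 against 82.45, 76.1, 103 and 101 CPM, log2 fold change -0.73 ± 0.12, adjusted p = 7.4e-04, named after its values were seen). Genes for cell division rose in 4 of 19 cases (median 0.70), Cdk1, Mcm7, Mcm3 and Mcm6. Cdk1, the kinase of mitosis, lay at 1.06, 2.13, 0.419 and 0.462 against 2.69, 8.33, 5.25 and 5.30 CPM (log2 fold change 2.32 ± 0.53, adjusted p = 0.0086). After removal of 1 library 1 to 4 rose, moving by over 1.5 times without PBS replicate 2, 3, 4 or 5 or CBE replicate 3 or 6, and the calls of the Mcm genes, parts of the replication helicase, ended in some of those fits. Their changes were 0.85 ± 0.24, 1.23 ± 0.36 and 0.70 ± 0.22, with adjusted p of up to 0.14, 0.11 and 0.13 with 1 library left out. Matrix and adhesion genes that fell numbered 2 without the day 34 libraries. Cell division genes that rose numbered 1 without the day 40 libraries, 0 without the 2 PBS libraries of high Xist and 1 with Xist level as a covariate. Mcm3 and Mcm6 lost their calls without the day 34 libraries (adjusted p up to 0.31), and Cdk1, Mcm3 and Mcm7 without the day 40 libraries (adjusted p up to 0.49). Cdk1, Mcm3, Mcm6 and Mcm7 lost their calls without the 2 PBS libraries of high Xist (adjusted p up to 0.25), and Mcm3, Mcm6 and Mcm7 with Xist level as a covariate (adjusted p up to 0.097).

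Of the genes that all cells use for respiration and glycolysis some fell and 0 rose, where 4.04% and 6.95% of all tested genes did. Of 39 nuclear genes of the respiratory chain and ATP synthase 3 fell, Cycs, Atp5d and Uqcrh, and 0 rose (median -0.02). Of 20 genes of glycolysis 1 fell, Eno2, the neuronal enolase, and 0 rose (median -0.14), or 1 to 2 without PBS replicate 4 or CBE replicate 2 or 3. The calls of Cycs (-0.58 ± 0.17) and Atp5d (-0.33 ± 0.10) ended without PBS replicate 2, 3 or 4 or CBE replicate 3, 4 or 6 (adjusted p up to 0.15) and without PBS replicate 2, 3 or 4 or CBE replicate 2, 3, 4 or 6 (adjusted p up to 0.16), and those of Uqcrh (-0.39 ± 0.12) and Eno2 (-0.36 ± 0.10) ended without PBS replicate 2, 3 or 4 or CBE replicate 2, 4 or 6 (adjusted p up to 0.14) and without PBS replicate 2 or 3 or CBE replicate 2, 3 or 6 (adjusted p up to 0.11). Of 47 cytosolic ribosomal proteins 9 rose by small amounts (median 0.19), among them Rps13 (548, 486, 537 and 465 against 704, 625, 838 and 775 CPM, log2 fold change 0.53 ± 0.11, adjusted p = 0.003) and Rplp0 (390.0, 427, 431 and 398 against 611, 524, 602 and 557 CPM, log2 fold change 0.48 ± 0.10, adjusted p = 0.0043). With any single library omitted, 4 to 11 ribosomal genes rose, moving by over 1.5 times without PBS replicate 5 or CBE replicate 2, 4 or 6. These genes have many processed copies, so their reads are uncertain. Respiratory genes that fell numbered 1 without the day 34 libraries, 0 without the day 40 libraries, 0 without the 2 PBS libraries of high Xist and 1 with Xist level as a covariate. Glycolysis genes that fell numbered 0 without the day 34 libraries and 0 without the day 40 libraries. Glycolysis genes that rose numbered 1 without the day 34 libraries and 1 without the 2 PBS libraries of high Xist. Ribosomal genes that rose numbered 2 without the day 40 libraries, 2 without the 2 PBS libraries of high Xist and 5 with Xist level as a covariate. Atp5d, Eno2 and Uqcrh lost their calls without the day 34 libraries (adjusted p up to 0.12), and Atp5d, Cycs, Eno2, Rps13 and Uqcrh without the day 40 libraries (adjusted p up to 0.46). Atp5d, Cycs, Rplp0 and Uqcrh lost their calls without the 2 PBS libraries of high Xist (adjusted p up to 0.1), and Cycs and Uqcrh with Xist level as a covariate (adjusted p up to 0.1).

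**Figure D4:**
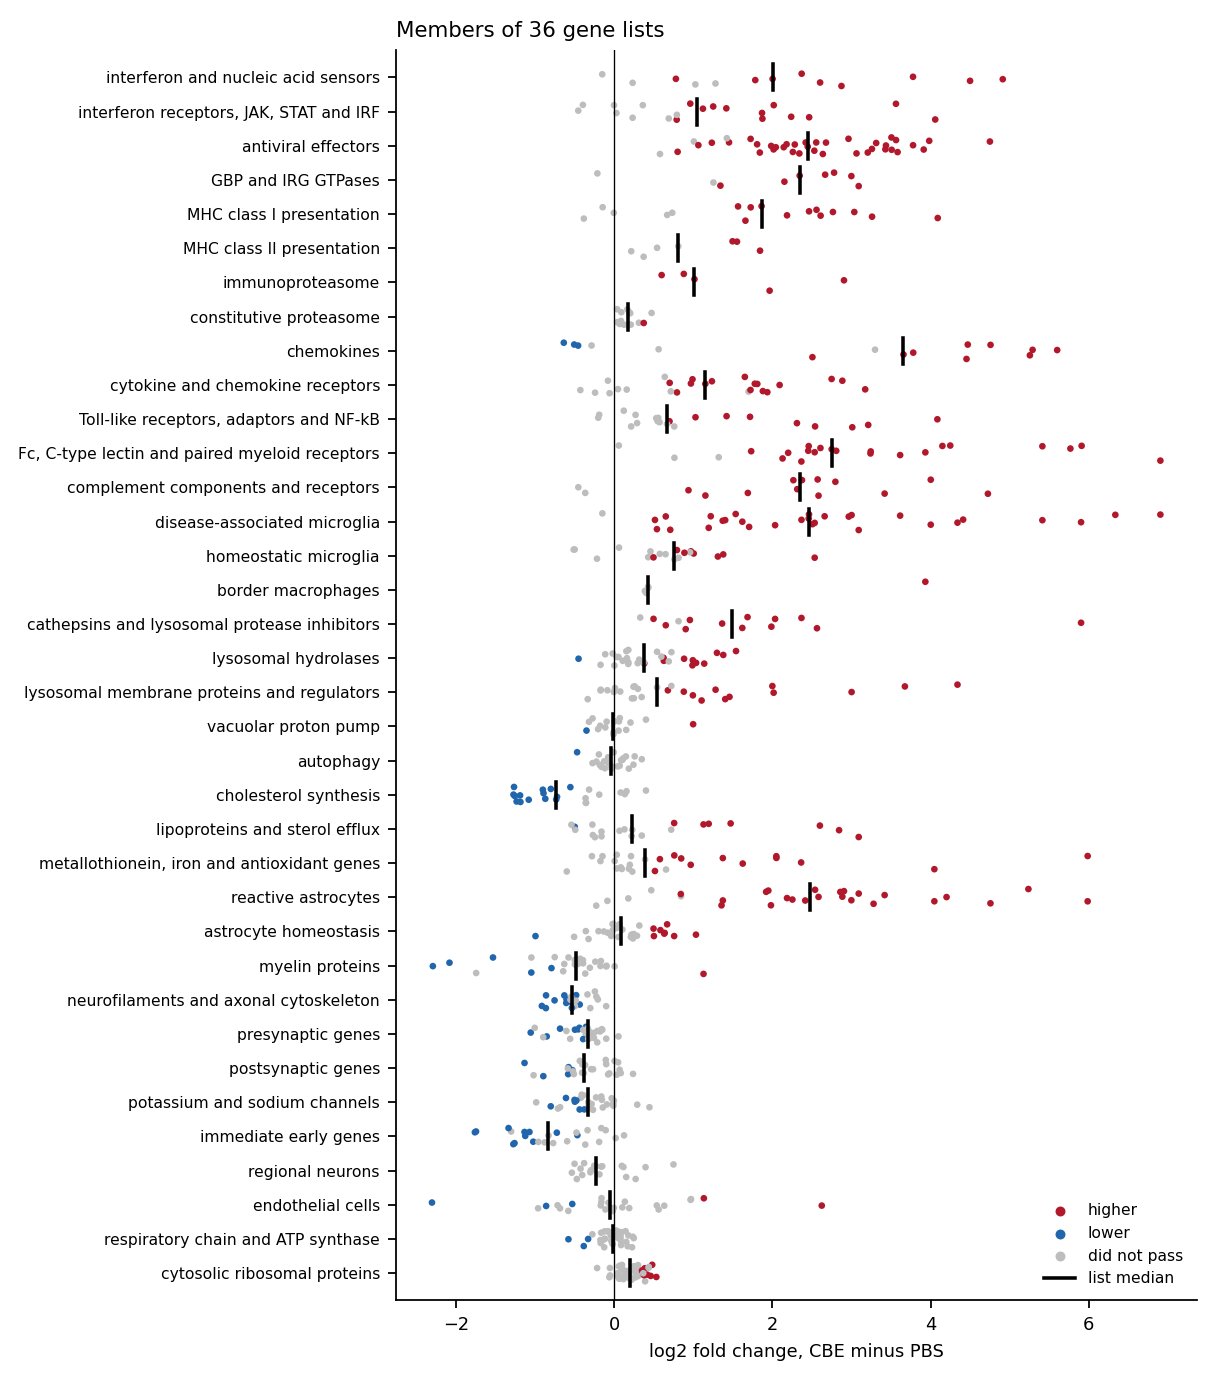
Each row is a gene list and each point a tested member, placed by its log2 fold change in CBE against PBS, red where it rose, blue where it fell and grey where it did not pass, with the list median as a black bar. Members of the antiviral effectors, with a median of 2.45, lie far to the right, those of cholesterol synthesis (-0.73) and the immediate early genes (-0.83) to the left, and those of the proton pump (-0.01) and autophagy (-0.04) about 0.

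The CBE libraries of day 34 and day 40 were set side by side because the CBE group held both. Between them 82 of 13372 genes passed (0.613%). Both days are compared with the same 4 PBS libraries of day 40, so each value below is its own comparison, and age and duration of CBE cannot be told apart. Depth went with day too, with 1841257 and 1758446 counts at day 34 and 3003757 and 3051435 at day 40. Its part in the differences was not tested. Antiviral effectors had a median log2 fold change of 2.89 at day 34 and 1.99 at day 40. The value was lower at day 40 in 37 of 39 of them, against 6632 of 12623 over all genes, and 0 passed between the days. Members of a list are not independent of each other, since each day rests on the same 2 libraries. For the GTPases the medians were 2.78 and 1.99, and for disease-associated microglia 2.63 and 2.22. Reactive astrocyte genes had 2.57 and 2.29, with 15 higher and 13 lower at day 40.

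Lists whose members fell differed in how the 2 days compared, and none of the differences of medians was tested. Immediate early genes had medians of -0.46 at day 34 and -1.11 at day 40, with 21 of 25 lower at day 40 and 0 past the threshold. Cholesterol synthesis had -0.58 and -0.98, and myelin genes -0.37 and -0.69, with Car2 among those that passed. Genes of glucocorticoid response had 0.03 and 0.46, and Fkbp5, Sult1a1 and Cdkn1a passed. Cdkn1a, an inhibitor of cell division that glucocorticoids also induce, lay at 121, 89.8, 88.8 and 69.4 CPM in PBS and 63.0, 72.2, 212 and 232 CPM in CBE (1.69 ± 0.25 between the days, adjusted p = 0.0096), and did not pass between CBE and PBS (log2 fold change 0.67 ± 0.33, adjusted p = 0.22). It was named after its values were seen. By contrast, presynaptic genes had -0.38 and -0.34, and channels -0.45 and -0.18. Over all genes the medians were -0.02 at either day, and 6632 of 12623 had a lower value at day 40.

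**Figure D5:**
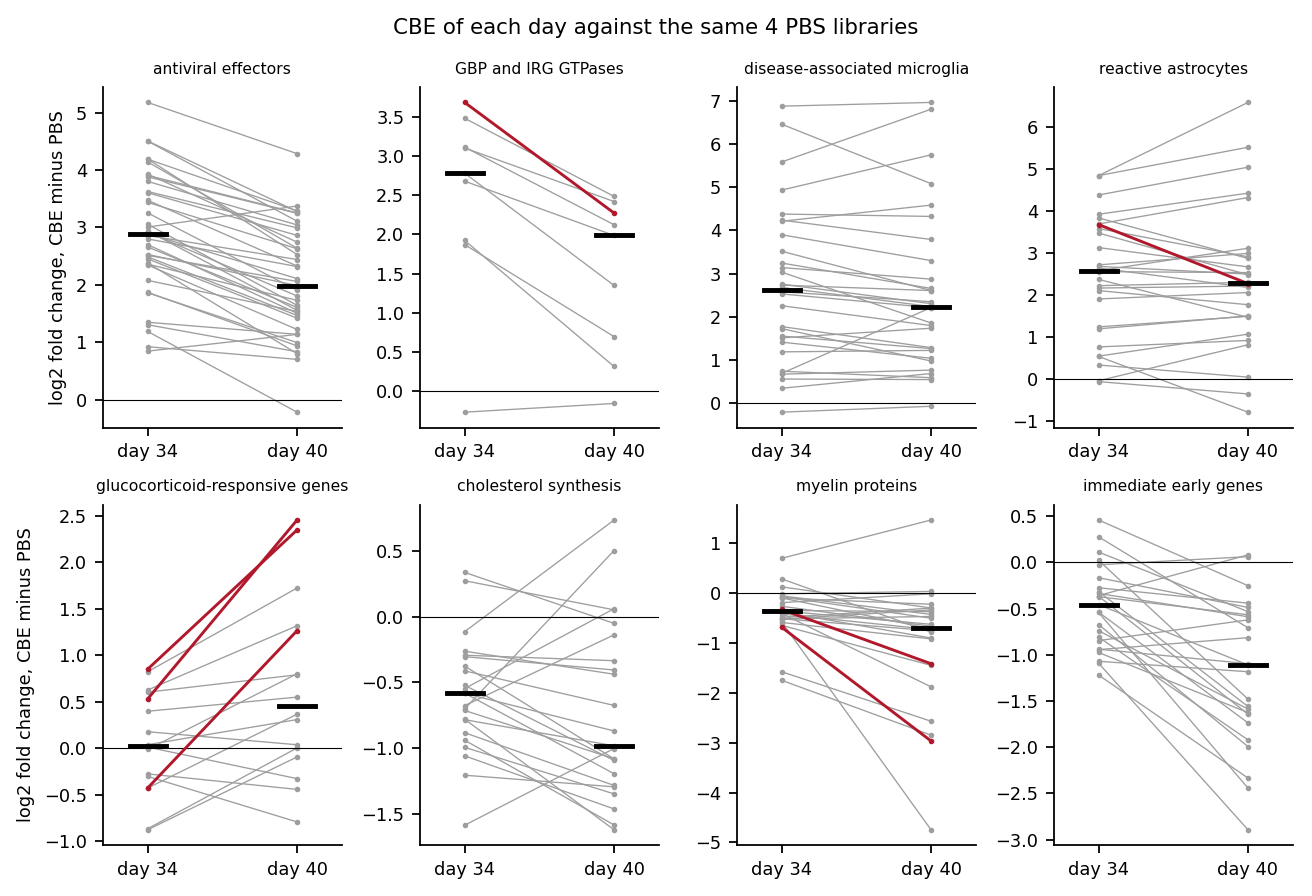
Each line is 1 member of a gene list and joins its log2 fold change at day 34 with that at day 40, each against the same 4 PBS libraries; red lines passed between the days and black bars are medians. Antiviral effectors slope down from 2.89 to 1.99, immediate early genes from -0.46 to -1.11, and glucocorticoid-responsive genes slope up from 0.03 to 0.46.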

How the data were processed

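Whole brains were profiled by bulk MARS-seq, which reads tags at the 3′ ends of transcripts, in 12 libraries. Per the submitters' processing notes the authors used cutadapt, HISAT 0.1.6, HTSeq and DESeq2 with build mm10. Not given in the sources used here are the annotation, the handling of molecular identifiers and the strand setting. The deposited gene counts were raw. In the authors' deposited normalized signal each value is the raw count times 1 constant per library, so it was checked and not tested. The authors' deposited log2 fold changes and adjusted p-values served only to count shared genes.

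Of 16505 entries, 23 whose symbols had become dates (0.266% to 0.347% of the counts) were left out, as were 5 with no count. Unused columns of per-sample values numbered 0. Counts were tested with edgeR 4.0.16 (R 4.3.3): TMM scaling, filterByExpr (minimum count 10, minimum total 15), glmQLFit and glmQLFTest on the 12 libraries in 3 groups, and Benjamini-Hochberg adjustment over 12623 genes. The biological coefficient of variation was 0.193, and PBS and CBE libraries of 1758446 to 6521257 counts limit precision for genes of few counts. A gene with few counts in PBS could pass the filter through its counts in another group, and list counts and medians cover tested members alone. The days of CBE were compared in a fit of 4 groups. Standard errors are the log2 fold change over the square root of F. Alternatives included DESeq2 1.42.0 and limma 3.58.1. The fit was tested on simulated counts. Ratios of counts have 95% intervals that cover counting error only. Figures and tables were made with Python 3.11.15. Gene positions are those of GRCm38 (mm10).

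The genes named are the 15 largest rises and 15 largest falls without overlap between the groups, up to 10 genes of at most 3 PBS counts, up to 4 members of each gene list with the smallest p, and 8 genes chosen by name, of which the text describes a part. The comparison and the gene lists were chosen with earlier results of these data known, and genes named outside this rule are said to be named after their values were seen. Without the 2 PBS libraries of high Xist (over 5 CPM) is an alternative added after the data were seen. Some genes that this rule names are not reported here.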

Additional observations from a re-analysis of the deposited data

Results flagged for a closer look

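In groups of 4 libraries, 27 of 478 groups tested had a value set apart from the other 3, and chance flags about 1 in 20. Gapdh, described at the end, was not among the genes so tested. In PBS, replicate 2 was highest in Fosb (54.8 CPM), Rbfox3 (1327 CPM) and Vim (97.1 CPM) and lowest in Hmgcs1 (249.8 CPM). PBS replicate 3 was highest in H2-Eb1 (9.57 CPM), Pcp4 (756 CPM) and S100a9 (12.8 CPM) and lowest in Hsp90b1 (214 CPM) and Mt2 (1026 CPM). PBS replicate 4 was highest in Cd68 (23.5 CPM), Hcar2 (0.419 CPM) and Lilr4b (0.838 CPM) and lowest in Npc1 (23.5 CPM) and Tagln (6.70 CPM). PBS replicate 5 was highest in Cxcl13 (0.462 CPM), Trem2 (34.0 CPM) and Ttr (103 CPM).

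In CBE, replicate 2 was highest in Bid (25.9 CPM) and Fa2h (64.1 CPM) and lowest in St14 (2.16 CPM). CBE replicate 3 was highest in Fcgr4 (15 CPM) and Hcar2 (7.22 CPM) and lowest in Csf2rb (7.78 CPM). CBE replicate 4 was highest in Ttr (517 CPM), and CBE replicate 6 in Pcp4 (492 CPM), Timp1 (85.8 CPM) and Vwf (32.1 CPM).

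Between day 40 and day 34 of CBE, edgeR's test of the difference passed for the following genes of the text. The log2 difference was positive for Fkbp5 (1.92), Cdkn1a (1.69), Sult1a1 (1.49) and Mt1 (0.99). It was negative for H2-Aa (-3.44), H2-Eb1 (-3.30), Ighm (-1.61), Gbp2 (-1.41), Cxcl10 (-1.35), Car2 (-1.09), Hspa4 (-1.03), Mfge8 (-1.01), Hsph1 (-0.77) and Csf1r (-0.71).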

How the results depend on the processing

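Of 1387 genes past the threshold, 877 higher and 510 lower in CBE, the number changed by over 1.5 times in the following fits, and the cause was not tested. Without the day 40 CBE libraries 751 passed (99 lower), against a fold change of 1.2 (glmTreat) 805 (166 lower), without the 2 PBS libraries of high Xist, which also leaves fewer samples, 720 (515 higher, 205 lower) and at an adjusted p under 0.01, by construction, 676 (534 higher, 142 lower). With 1 library left out 962 to 1515 passed, 711 to 959 higher and 237 to 556 lower. The labels do not say whether the replicate numbers 2, 3 and 4 that PBS and CBE share pair the libraries. The deviations of same-numbered libraries from their group means correlate at 0.058, 0 and 0.063, but 3 such values cannot exclude pairing. With these numbers as a replicate block 947 genes passed, 654 higher and 293 lower. DESeq2 gave 1638, limma-voom 1383, other scalings 1342 to 1352, other filters 1417 to 1439, the 8 libraries alone 1182 and Xist as a covariate 1148. In each of these fits the genes that also passed in the fit reported had the same sign. Of 188 called genes in the text, 145 kept their call whichever single library was left out and 43 did not. The call ended for 53 without the day 40 libraries, 50 without the 2 PBS libraries of high Xist, 47 at an adjusted p under 0.01, 38 in glmTreat, 33 with the replicate block, 24 without the day 34 libraries and 21 with Xist as a covariate. It ended for 10 in the 8 libraries alone, and for 0 to 6 under each other tool, scaling or filter. H2-Aa turned to -2.05 without the day 34 libraries.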

Other observations

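Gapdh, a glycolytic enzyme that is often used as a constant reference, lay at 425, 22.3, 16.3 and 16.3 CPM in PBS and 9.70, 17.2, 516 and 16.2 CPM in CBE, so that 1 library of each group was far above the others. It was named after its values were seen. The gene did not pass (log2 fold change 0.25 ± 1.303, adjusted p = 0.93 by edgeR's quasi-likelihood test), and it has many processed copies in the mouse genome.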
